A study of Mus musculus with 17 samples.

Results

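The comparison set XEN cells grown in XEN medium against mouse embryonic fibroblasts (MEF), chosen by the sample source given in the labels. It used 6 of the series' 17 RNA-seq libraries, 3 of each kind. All were made from CD-1 mouse cells. XEN cells are cultured stem cells of extraembryonic endoderm. They had 10 passages in ESC medium before 5 more in XEN medium. The MEF were untreated controls kept for 3 passages in MEF medium, and they are connective tissue cells explanted from mouse embryos. The groups differ at once in cell type, in medium and in passages, and the parts of these cannot be told apart. What XEN medium contains is not given in the sources used here. Samples are called biological replicates, without saying whether they came from separate derivations or cultures, so p-values reflect the spread among these 6 libraries alone, which may be technical. Libraries are named by the numbers in their labels, and values are listed in the order XEN 1, 2 and 7 and MEF 1, 2 and 3.

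Extraembryonic endoderm arises from the primitive endoderm of the blastocyst. It splits into visceral endoderm, an absorptive epithelium around the embryo that takes up and secretes serum proteins and lipoproteins, and parietal endoderm, migratory cells that lay down the thick basement membrane named after Reichert. XEN cell lines are known to hold features of both, and the transcription factors Gata4, Gata6, Sox7 and Sox17 are used as their markers. Fibroblasts carry the opposite program, a collagen-rich interstitial matrix with mesodermal transcription factors and patterned Hox expression.

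Levels are CPM, counts scaled to a library of 1e6 after correction by TMM factors. They are not corrected for gene length, so a level compares libraries and not genes. A gene is called when edgeR's quasi-likelihood test gave a Benjamini-Hochberg adjusted p under 0.05 over all genes tested, and only called genes are termed higher or lower. Counts in genes came to 37544512 to 45914262 in the XEN libraries and 25871507 to 33893638 in MEF, and 3 counts in 1 library equal 0.0653 to 0.116 CPM. In bulk RNA, fewer cells of a type and less RNA per cell cannot be told apart.

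XEN 7 stood apart from the other XEN libraries across all genes. On log2 CPM over 12934 genes, XEN 1 and 2 correlated at 0.95, XEN 7 correlated at 0.841 and 0.876 with them, and the MEF libraries correlated at 0.978 to 0.986 with each other. Among the 14390 genes tested, 501 were more than 8-fold higher in XEN 7 than in both other XEN libraries, against 48 for XEN 1 and 37 for XEN 2. In the other direction, 179 genes were more than 8-fold lower in XEN 7 than in both others, 101 in XEN 1 and 27 in XEN 2. The biological coefficient of variation was 0.523 among XEN libraries and 0.195 among MEF. For some genes and lists the values are therefore also given without XEN 7. Of the 241 named genes tested, 21 gained a call without XEN 7 and 1, Apob, lost its call. The lower genes gained were Apoe, Ccnd1, Cdh2, Dusp6, Fgfr1, Id3, Itga2, Kitl, Twist1 and Vcam1. The higher genes gained were Ankrd10, Dkk1, F3, Ing1, Insr, Klf4, Nid1, Serpinh1, Snai1, Sparc and Thbd.

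Of the 14390 genes tested, 6830 (47.5%) were called. There were 3310 higher genes (23%) and 3520 lower genes (24.5%) in XEN cells. The CPM ranges of both groups did not overlap for 9126 genes (63.4%). The median log2 fold change over all genes was 0.02, with quartiles at -1.18 and 0.82. Large differences were mostly losses. By fitted fold change, 266 called genes were over 32-fold higher (1.85%) and 1117 over 32-fold lower (7.76%), and 259 and 1079 remained past that size once genes with 0 counts in a whole group were set to their bound. All 3 XEN libraries had 0 counts of 215 tested genes, 36 of which had a mean of at least 10 CPM in MEF, whereas MEF lacked 24 genes and 1 of these, Anxa13, reached a mean of 10 CPM in XEN. Leaving out MEF 1 lowered the number of called genes to 3985 and leaving out MEF 3 lowered it to 4084, while without XEN 7 it came to 8965. Genes called higher numbered 1610, 2015 and 1698 without MEF 1, 2 and 3, and genes called lower 2375, 2617 and 2386. Without XEN 1, 2 and 7 there were 3247, 2966 and 4145 higher and 3499, 3195 and 4820 lower genes. DESeq2 gave 3565 and 4145. List counts from these fits are to be read beside these numbers. The scatter plot of group means shows the large losses.

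**Figure D1:**
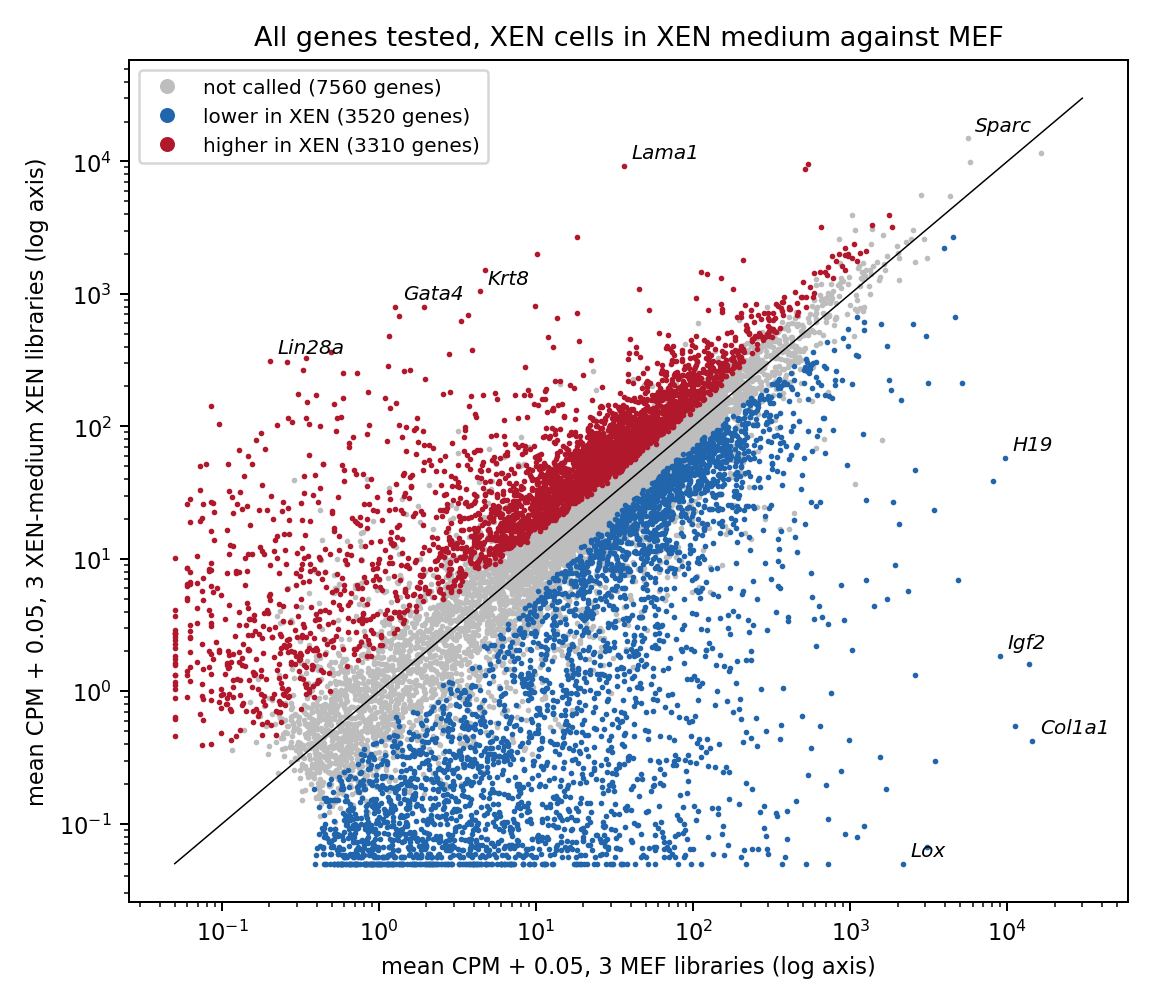
Each point is 1 of the 14390 genes tested, with its mean over the 3 MEF libraries on the x axis and its mean over the 3 XEN libraries on the y axis, both as CPM + 0.05 on log axes. The 3310 red points are called higher in XEN cells, the 3520 blue points lower, the grey points are not called, and the black line marks equal levels. The blue points reach the floor of the plot for genes such as Lox that had no counts in XEN cells, while few red points lie at the left edge.

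The XEN markers Gata4, Gata6, Sox17, Sox7, Dab2 and Foxa2 were called higher in XEN cells, and Pdgfra was not. Pdgfra, a receptor tyrosine kinase of primitive endoderm that fibroblasts also carry, stood at 878, 559 and 119 CPM in XEN and 750.2, 636 and 514 CPM in MEF (log2 fold change -0.24, SE 0.65, adjusted p = 0.78). The groups overlapped, and XEN 7 was the lowest of the 6 libraries. Among the fibroblast markers, Thy1, Col1a1, Col1a2, Pdgfrb and Postn were lower in XEN cells. Twist1, a mesodermal transcription factor, had 1.03, 0.963 and 18.1 CPM in XEN and 40.1, 39.2 and 65.4 CPM in MEF. Its ranges did not overlap, but XEN 7 lay far above the other XEN libraries and the gene was not called (log2 fold change -2.79, SE 1.20, adjusted p = 0.0983). Without XEN 7 it was called, with a log2 fold change of -5.54 (adjusted p = 0.000132). The plot of these markers by library shows both exceptions.

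**Figure D2:**
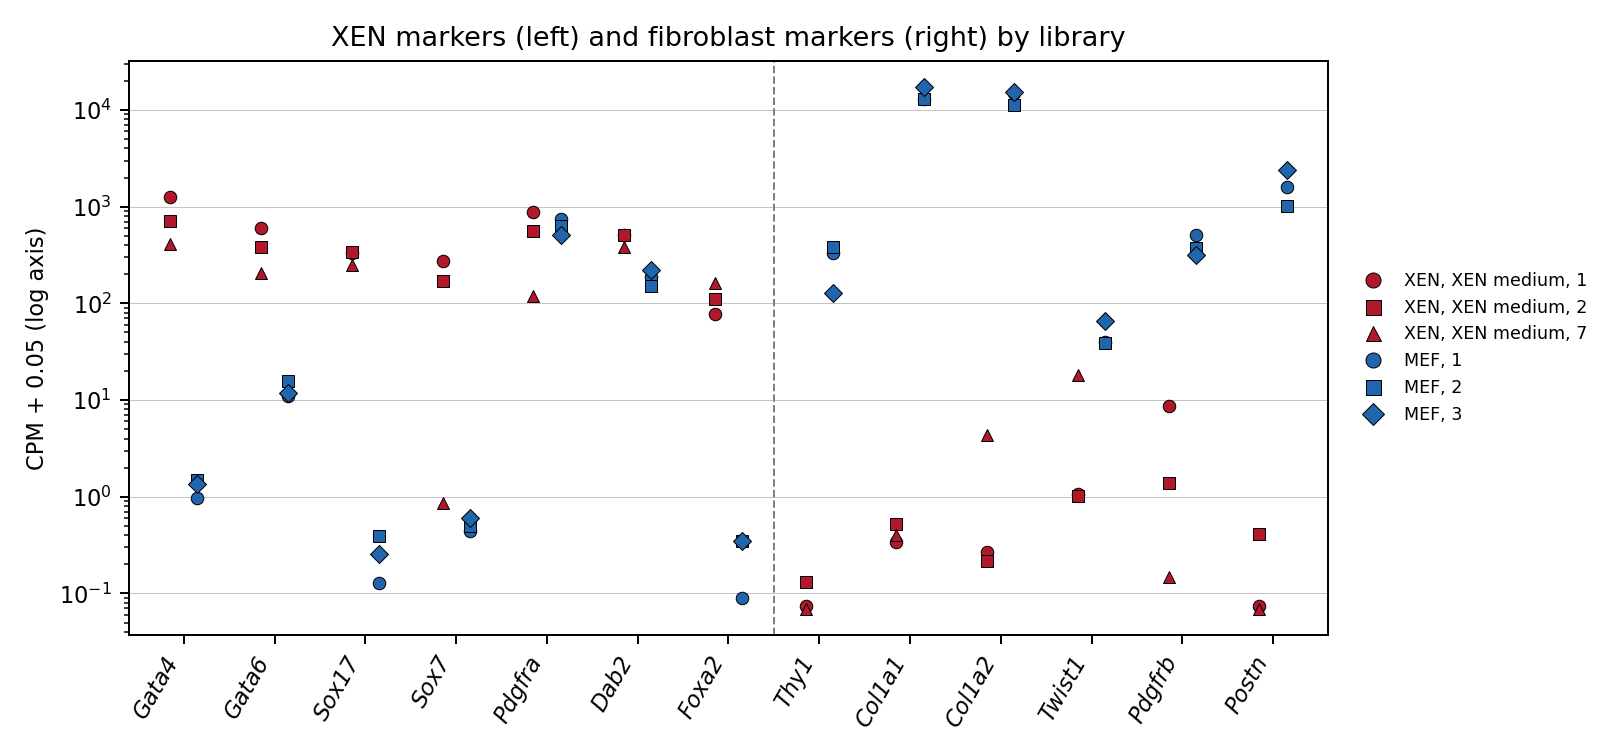
CPM + 0.05 on a log axis for the 7 XEN markers, left of the dashed line, and the 6 fibroblast markers, right of it. Red symbols are the XEN libraries 1, 2 and 7 and blue symbols the MEF libraries 1, 2 and 3, 1 symbol per library. Red lies above blue for each XEN marker other than Pdgfra, with XEN 7 just above MEF for Sox7, and below blue for every fibroblast marker.

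The 10 largest fitted increases among the 4840 called genes with non-overlapping groups and a mean of at least 10 CPM in the higher group were those of Spink3, Anxa13, Cldn6, Lin28a, Ripk4, Tex19.1, Slc38a5, Sox17, Mageb16 and Psca. Lin28a, an RNA-binding protein that blocks maturation of let-7 microRNAs, had 350.3, 303 and 282 CPM in XEN and 0.155, 0.151 and 0.147 CPM in MEF (log2 fold change 11.03, SE 0.25, adjusted p = 5.31e-05). Its level varied little within either group. Spink3, a secreted trypsin inhibitor, had 111, 76.3 and 242 CPM in XEN against 3 counts over all of MEF, a ratio of 4408 (95% counting interval 1508 to 21376). Mageb16, an X-linked gene of the MAGE family, had 43.9, 69.5 and 42.5 CPM against 0, 0 and 0.0884 CPM, a ratio of 1457 (95% counting interval 498 to 7066). Tex19.1, a gene of germ cells and placenta, had 3.55, 30.9 and 50.8 CPM in XEN and a single count in MEF. Slc38a5, an amino acid transporter, had 61, 15.4 and 1.77 CPM in XEN and 0, 0 and 0.0295 CPM in MEF. Ripk4, a kinase needed for epidermal differentiation, had 23.8, 25.6 and 101 CPM in XEN and 2 counts in MEF, and Psca, a glycolipid-anchored surface protein, 33.3, 14 and 9.48 CPM and a single count. Anxa13, an annexin, was at 12.9, 17.2 and 0.255 CPM in XEN and at 0 counts in MEF, at least 262-fold higher. XEN 7 carried almost none of it. With 1 library left out, the call was lost for Anxa13 without any 1 MEF library (adjusted p = 0.0584 to 0.0663).

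The 10 largest fitted decreases by the same rule were those of Lox, Lum, Ptn, Svep1, Agtr2, Ptx3, Col1a1, Loxl1, Tnmd and Fbn2. Lox, the lysyl oxidase that crosslinks collagen and elastin, had 1855, 1771 and 2887 CPM in MEF and not 1 count in any XEN library, at least 95449.7-fold lower if XEN is given 3 counts in all, the floor used for every such bound. Lum, a keratan sulphate proteoglycan of collagen fibrils, was at least 32308-fold lower, and Svep1, an adhesive matrix protein, at least 22569.9-fold lower. Agtr2, the type 2 angiotensin II receptor, and Ptx3, a secreted pentraxin, were also at 0 counts in XEN and at 492, 239 and 371 CPM and 192, 304 and 152 CPM in MEF. Tnmd, a membrane protein of tendon, was at 0 counts as well and at least 4745-fold lower. Ptn, the growth factor pleiotrophin, had 3304, 2476 and 3421 CPM in MEF and 0.0245, 0.0275 and 0 CPM in XEN. Col1a1, the main chain of type I collagen, had 12934, 12929.7 and 17288 CPM in MEF and 0.294, 0.468 and 0.353 CPM in XEN (log2 fold change -15.18, SE 0.54, adjusted p = 8.57e-05). Every XEN library held some Col1a1 counts. Loxl1, a relative of Lox, had 242, 396 and 510.1 CPM in MEF and a single count in XEN, and Fbn2, the microfibril protein fibrillin 2, had 1299.8, 734 and 1273 CPM and 0, 0.0275 and 0.0589 CPM.

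Endoderm transcription factors had the highest median change of the 45 lists. Of 12 listed genes, 9 passed the filter on low counts and each of these was higher in XEN cells, with a median log2 fold change of 9.10 beside 0.02 over all genes. Gata4, a zinc finger factor of primitive endoderm, had 1272, 704 and 414 CPM in XEN and 0.929, 1.43 and 1.3 CPM in MEF (log2 fold change 9.39, SE 0.61, adjusted p = 0.000273). Gata6, its relative and an early determinant of that lineage, had 607, 379.6 and 205 CPM and 10.9, 15.7 and 11.9 CPM (log2 fold change 4.99, SE 0.48, adjusted p = 0.0009). For both, XEN 1 was highest and XEN 7 lowest, and each XEN library lay far above MEF. MEF held measurable Gata6.

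Sox17, an HMG box factor of endoderm, had 335, 337 and 250.2 CPM in XEN and 0.0774, 0.339 and 0.206 CPM in MEF (log2 fold change 10.55, SE 0.54, adjusted p = 0.000143). Sox7, its close relative, split the XEN libraries, with 272, 169 and 0.805 CPM against 0.387, 0.452 and 0.56 CPM (log2 fold change 8.33, SE 1.97, adjusted p = 0.016). XEN 7 lay just above the MEF range for Sox7 while keeping a Sox17 level like that of the others. Foxa2, a forkhead pioneer factor of endoderm, had 77, 109.9 and 162 CPM and 0.0387, 0.301 and 0.295 CPM (log2 fold change 9.10, SE 0.69, adjusted p = 0.000424), and here XEN 7 was highest. Hnf4a, a nuclear receptor of visceral endoderm and liver, had 23.3, 14 and 23.4 CPM and 0, 0.0753 and 0 CPM (log2 fold change 9.59, SE 0.94, adjusted p = 0.000985). Foxq1, another forkhead factor, was higher (log2 fold change 9.46, adjusted p = 0.000391), as was Sall4, a zinc finger factor shared with pluripotent cells (log2 fold change 9.05, adjusted p = 0.000143). Leaving out 1 library ended the call of Sox7 without any 1 MEF library (adjusted p = 0.0646 to 0.0689).

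The GATA motif was looked for in promoter windows of 250 bases before to 50 bases after each annotated start, taken from the RefSeq table of mouse build GRCm38.p6. The counts were made on build mm9, so these coordinates are RefSeq's and were joined to the counts by gene symbol alone. Windows were found for 10695 of the 14390 genes. The motif AGATAA, searched on both strands, was present in 7.19% of 3058 windows of genes called higher, 6.29% of 3336 windows of genes called lower and 6.49% of 13625 windows of all genes tested. The SOX motif AACAAT was present in 5.76%, 5.88% and 5.92%, and the AP-1 motif TGANTCA in 5%, 6.38% and 5.34% of the same windows. Of the windows of genes called higher, 220 in 206 genes hold the GATA motif. As examples picked by hand, 4 of these are printed 5′ to 3′ on the strand of the gene with the motif in capitals, because their genes are described here as endoderm or epithelial genes. They belong to Foxa2 (chr2:148045415-148045714, minus strand), Hnf4a (chr2:163506607-163506906, plus strand), the endocytic adaptor gene Dab2 (chr15:6299539-6299838, plus strand) and the keratin gene Krt8 (chr15:102004293-102004592, minus strand).
Foxa2: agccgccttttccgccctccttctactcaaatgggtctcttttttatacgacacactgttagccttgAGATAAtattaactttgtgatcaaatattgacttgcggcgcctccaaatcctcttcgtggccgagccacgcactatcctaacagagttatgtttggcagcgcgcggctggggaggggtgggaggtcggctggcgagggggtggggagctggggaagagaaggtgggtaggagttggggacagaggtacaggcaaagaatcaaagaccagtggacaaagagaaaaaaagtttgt
Hnf4a: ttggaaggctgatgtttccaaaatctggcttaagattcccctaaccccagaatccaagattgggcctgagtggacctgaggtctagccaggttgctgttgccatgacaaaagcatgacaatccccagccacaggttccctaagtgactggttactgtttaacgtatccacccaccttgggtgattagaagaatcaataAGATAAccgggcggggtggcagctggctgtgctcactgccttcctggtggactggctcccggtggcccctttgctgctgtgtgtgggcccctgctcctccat
Dab2: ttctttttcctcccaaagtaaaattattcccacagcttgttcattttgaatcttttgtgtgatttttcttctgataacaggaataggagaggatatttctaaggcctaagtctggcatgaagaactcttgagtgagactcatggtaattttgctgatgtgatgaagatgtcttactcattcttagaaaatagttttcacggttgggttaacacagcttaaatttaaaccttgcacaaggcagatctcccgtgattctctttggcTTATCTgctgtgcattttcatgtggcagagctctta
Krt8: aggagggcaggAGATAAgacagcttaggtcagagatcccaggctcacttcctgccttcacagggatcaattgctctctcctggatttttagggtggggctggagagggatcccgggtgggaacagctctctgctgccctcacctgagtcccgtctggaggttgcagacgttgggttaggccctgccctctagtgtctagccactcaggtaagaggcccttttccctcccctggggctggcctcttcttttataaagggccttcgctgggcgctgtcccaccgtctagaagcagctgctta
In Dab2 the match reads TTATCT, the motif on the other strand. The table holds 3 windows for Foxa2 and 2 each for Hnf4a and Dab2, of which 1 each has the motif. A match describes these letters only and does not show binding.

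Most visceral endoderm genes past the filter were higher, at levels that differed widely among the XEN libraries. Of 21 listed genes, 15 passed the filter, 11 of these were higher and 0 lower, and the median log2 fold change was 4.16. The uptake machinery was led by Cubn, the receptor cubilin, with 353, 147 and 6.24 CPM in XEN and 3.64, 3.69 and 4.01 CPM in MEF (log2 fold change 5.52, SE 1.33, adjusted p = 0.017). XEN 7 lay only just above MEF for Cubn. Lrp2, the megalin receptor that works with it, had 42.2, 138 and 17.1 CPM and 5.19, 5.38 and 2.47 CPM (log2 fold change 3.97, SE 0.85, adjusted p = 0.0112), with XEN 2 highest. Dab2, the adaptor that links these receptors to clathrin, had 509, 512 and 387 CPM and 187, 149 and 220.3 CPM (log2 fold change 1.39, SE 0.22, adjusted p = 0.00403), the narrowest XEN range of the 3. Visceral endoderm genes called higher numbered 6 without MEF 3. Visceral endoderm genes called lower numbered 2 without XEN 7. The call did not hold for Cubn without any 1 MEF library (adjusted p = 0.0673 to 0.0723) and Lrp2 without MEF 3 (adjusted p = 0.0518).

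Among secreted products, Ttr, the thyroid hormone carrier transthyretin, had 33.5, 13.8 and 11.3 CPM in XEN and 0.271, 0.263 and 0.118 CPM in MEF (log2 fold change 6.53, SE 0.67, adjusted p = 0.00112). Afp, the fetal serum protein alpha-fetoprotein, was low in XEN 1 and 2 and higher in XEN 7, with 0.833, 2.64 and 21 CPM against 3 counts in all of MEF, a ratio of 269 (95% counting interval 91.8 to 1306). Apob, the structural protein of lipoproteins, had 1.81, 0.523 and 30.3 CPM and 0.465, 0.527 and 0.324 CPM (log2 fold change 4.68, SE 1.57, adjusted p = 0.0489), while Mttp, which loads lipid onto it, had 423, 87.5 and 9.82 CPM and 10.0, 9.14 and 8.19 CPM (log2 fold change 4.29, SE 1.25, adjusted p = 0.0313). XEN 7 was the highest XEN library for Apob and the lowest for Mttp, and XEN 2 lay within the MEF range for Apob. Without XEN 7 the log2 fold change of Apob was 1.47 (adjusted p = 0.082), with the replicate block 1.06 (adjusted p = 0.254), and that of Mttp without XEN 1 was 2.49 (adjusted p = 0.0589). In the replicate block fit XEN 7 and MEF 3 have no partner number, so its fold changes rest on XEN 1 and 2 and MEF 1 and 2. Ihh, the hedgehog ligand of visceral endoderm, had 44.6, 20.8 and 3.81 CPM against 0.116, 0.188 and 0.265 CPM (log2 fold change 6.92, SE 1.06, adjusted p = 0.00363). Apoe, an apolipoprotein, had 4.63, 3.85 and 140.4 CPM and 83.2, 34.6 and 76.5 CPM and was not called (log2 fold change -0.33, SE 1.34, adjusted p = 0.859). The apolipoprotein genes Apoa1 and Apoa4 were under the filter, with highest levels of 0.196 and 0.0393 CPM in XEN. Dkk1, a secreted WNT inhibitor of the anterior visceral endoderm, had 1.59, 14.4 and 0.295 CPM and 0.194, 0.263 and 0.471 CPM and was not called (log2 fold change 4.16, SE 1.44, adjusted p = 0.0542), and Cer1, a Nodal inhibitor of the same region, was under the filter at 0.0979, 0.0275 and 0 CPM. A left-out library took the adjusted p past 0.05 for Afp without MEF 3 (adjusted p = 0.0608), Apob without MEF 1, MEF 2, MEF 3 or XEN 7 (adjusted p = 0.082 to 0.151), and Mttp without MEF 1, MEF 2, MEF 3 or XEN 1 (adjusted p = 0.0589 to 0.111). Apob missed the threshold in the fit to all 17 libraries (adjusted p = 0.0856).

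Parietal endoderm genes, like genes in general, were called higher more often once XEN 7 was left out. Of 15 tested genes, 5 were higher and 1 lower (median log2 fold change 1.98), and without XEN 7, 11 were higher and 1 lower. Over all genes, the number called higher rose from 3310 to 4145 without XEN 7. Stra6, the membrane receptor for retinol-binding protein, had 423, 261 and 75.9 CPM in XEN and 0.581, 0.602 and 0.442 CPM in MEF (log2 fold change 8.91, SE 0.81, adjusted p = 0.000763). Srgn, a proteoglycan of secretory granules, had 1285, 818 and 269 CPM and 1.55, 2.18 and 1.91 CPM (log2 fold change 8.76, SE 0.75, adjusted p = 0.000606). Pth1r, the receptor for parathyroid hormone-related protein, had 1294, 806 and 39 CPM and 15.9, 14.7 and 23.6 CPM (log2 fold change 5.35, SE 1.21, adjusted p = 0.0136). In all of them XEN 7 was the lowest XEN library. Thbd, the anticoagulant receptor thrombomodulin, had 145, 312 and 6.48 CPM and 61.7, 71.3 and 72.2 CPM (log2 fold change 1.22, SE 1.08, adjusted p = 0.379), and Snai1, a zinc finger repressor, had 121, 117 and 5.2 CPM and 31.3, 53.4 and 39 CPM (log2 fold change 1.02, SE 0.97, adjusted p = 0.415). Both were above MEF in XEN 1 and 2 and below it in XEN 7. Vim, the intermediate filament vimentin, was the 1 lower gene, with 176, 636 and 1186 CPM and 3363, 5259 and 5377 CPM (log2 fold change -2.76, SE 0.70, adjusted p = 0.0201). Parietal endoderm genes called higher numbered 8 without XEN 1 or by DESeq2. The threshold was missed by Pth1r without any 1 MEF library (adjusted p = 0.057 to 0.0614) and Vim without MEF 2, MEF 3 or XEN 2 (adjusted p = 0.0581 to 0.0635).

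Among basement membrane genes, the 3 chains of laminin 111 were higher in XEN cells, the alpha chain by the most. Lama1, the alpha 1 chain, had 15483, 9370.4 and 3025 CPM in XEN and 35.3, 41.7 and 32 CPM in MEF (log2 fold change 8.04, SE 0.78, adjusted p = 0.000955). Its partners Lamb1 and Lamc1, the beta 1 and gamma 1 chains, had 15326, 8809.9 and 4353 CPM and 12399.6, 8382 and 5362 CPM in XEN against 558, 534 and 516 CPM and 515, 504 and 531 CPM in MEF, with log2 fold changes of 4.19 (adjusted p = 0.00203) and 4.12 (adjusted p = 0.00101). XEN 1 was highest and XEN 7 lowest for each chain. Of 19 tested basement membrane genes, these 3 were higher and 4 were lower, and without XEN 7 the numbers were 6 and 8. The lower genes were Hspg2, the heparan sulphate proteoglycan perlecan, at 309, 378 and 516 CPM against 1592, 1770.5 and 1768 CPM (log2 fold change -2.04, SE 0.26, adjusted p = 0.0021), Col18a1, a collagen with heparan sulphate chains, at 0.661, 0.468 and 1.28 CPM against 196, 125 and 169.9 CPM (log2 fold change -7.60, SE 0.49, adjusted p = 0.000257), Lama3, the alpha chain of epidermal laminin, and Smoc2, a calcium-binding matrix protein at 0 counts in XEN. Nid1, the linker between laminin and type IV collagen, had 7080.2, 1691 and 338 CPM and 1126, 1089.9 and 980.0 CPM, and Sparc, a collagen-binding glycoprotein, 26347, 13289 and 5247 CPM and 5436, 5107 and 6181 CPM. Neither was called, with log2 fold changes of 1.55 (adjusted p = 0.223) and 1.47 (adjusted p = 0.0841). The plot of these genes by library shows how far the XEN libraries spread. Basement membrane genes called higher numbered 5 by DESeq2 and 6 without XEN 1. Basement membrane genes called lower numbered 7 by DESeq2.

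**Figure D3:**
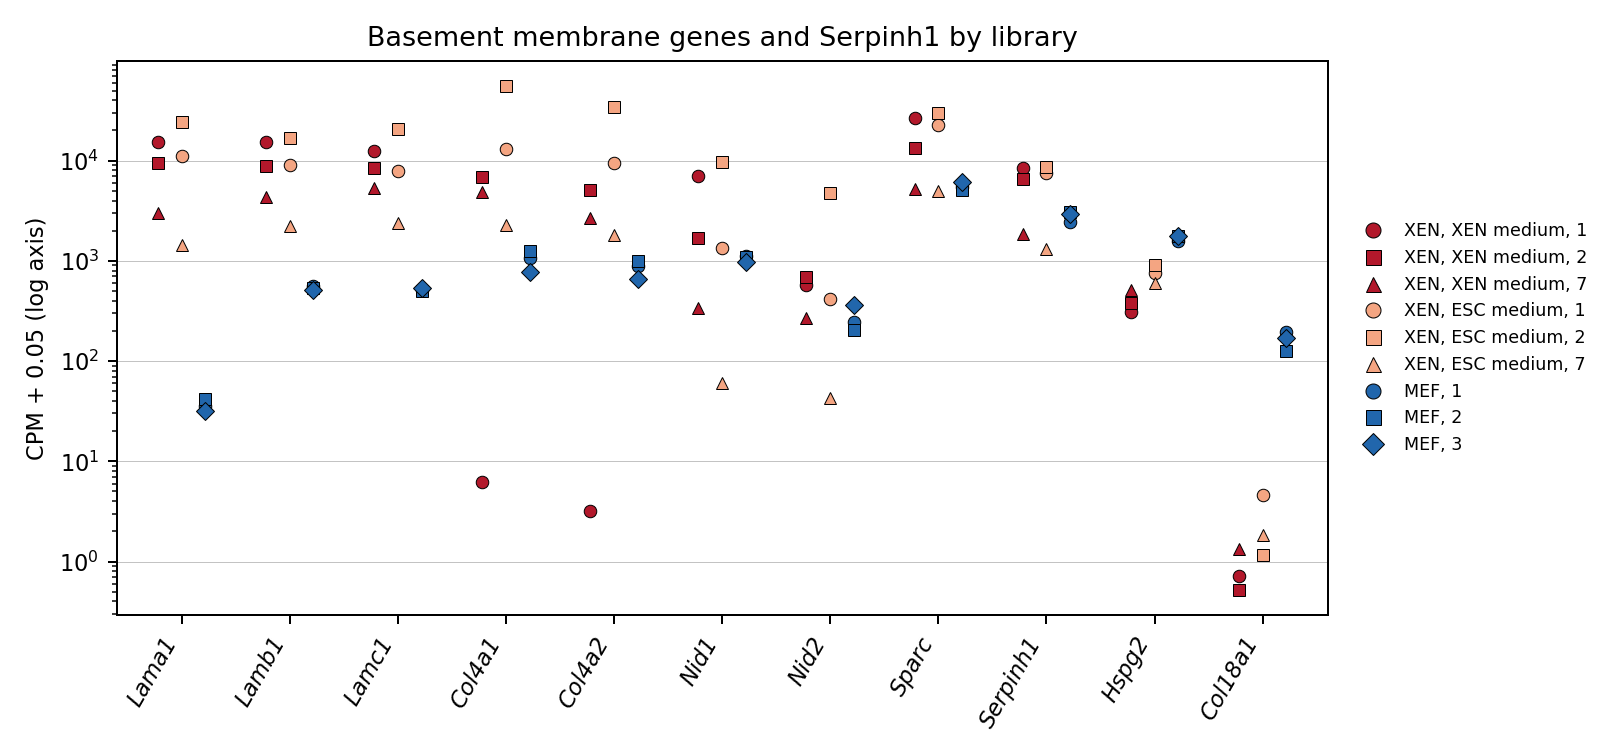
CPM + 0.05 on a log axis for 10 basement membrane genes and Serpinh1, 1 symbol per library. Dark red symbols are XEN cells in XEN medium, light orange symbols XEN libraries of the same numbers in ESC medium and blue symbols MEF. Lama1, Lamb1 and Lamc1 lie above MEF in each XEN library, while Col4a1 and Col4a2 fall to 6.10 and 3.13 CPM in XEN 1 in XEN medium alone.

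Type IV collagen was nearly absent from 1 XEN library. Col4a1, the alpha 1 chain of the collagen network in every basement membrane, had 6.1, 6891 and 4917 CPM in XEN and 1057, 1260.2 and 779.6 CPM in MEF, and Col4a2, the alpha 2 chain of the same triple helix, had 3.13, 5094 and 2655 CPM and 894, 985 and 666 CPM. XEN 1 lay below every MEF library for both genes and XEN 2 and 7 lay above every MEF library, and neither was called, with log2 fold changes of 1.98 (adjusted p = 0.357) and 1.66 (adjusted p = 0.444). Without XEN 1 the log2 fold changes were 2.58 (adjusted p = 0.00412) and 2.26 (adjusted p = 0.0079). In ESC medium, the XEN libraries of the same numbers held 13141, 55406 and 2296 CPM of Col4a1 and 9507, 34464 and 1811 CPM of Col4a2. Lama1 was highest in XEN 1, the library in which both collagen chains were lowest. Neighbouring genes on chromosome 8 were present in XEN 1, but the nearest on either side, Irs2 and Rab20, were lowest there among the XEN libraries. Irs2 had 8.94, 31 and 12.1 CPM in XEN and Rab20 had 3.75, 13 and 8.38 CPM. Further away, Ing1 had 66.8, 125 and 42.6 CPM and Ankrd10 had 59.7, 80.3 and 29.3 CPM. For these, and for Arglu1 and Cars2, XEN 1 lay between XEN 2 and XEN 7. XEN 1 was the lowest XEN library for Lig4 (18.8, 33.4 and 24.5 CPM). It was the highest for Abhd13 (71.3, 63.7 and 41.7 CPM) and Efnb2 (104, 85 and 63.8 CPM). The same held for Arhgef7 (70.9, 41.1 and 31.9 CPM) and Myo16 (1.13, 1.02 and 0.825 CPM). Whether the low collagen levels in XEN 1 extend to the neighbouring genes was not tested. Ergic1, a membrane protein of the early secretory pathway, was near 0 in the same library (0.0735, 55.3 and 80.2 CPM in XEN), as was the protease gene Prss23 (0.0735, 20.8 and 52.9 CPM); both were picked out after their values were seen.

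Col4a1 and Col4a2 lie head to head and share a start region, and their windows are printed here because both genes were low in XEN 1 and high in XEN 2 and 7. In RefSeq's GRCm38.p6 table, the Col4a1 window is chr8:11312777-11313076 on the minus strand and the Col4a2 window is chr8:11312555-11312854 on the plus strand. They overlap by 78 bases, which are in capitals in both, and the shared stretch of either is the reverse complement of the other.
Col4a1: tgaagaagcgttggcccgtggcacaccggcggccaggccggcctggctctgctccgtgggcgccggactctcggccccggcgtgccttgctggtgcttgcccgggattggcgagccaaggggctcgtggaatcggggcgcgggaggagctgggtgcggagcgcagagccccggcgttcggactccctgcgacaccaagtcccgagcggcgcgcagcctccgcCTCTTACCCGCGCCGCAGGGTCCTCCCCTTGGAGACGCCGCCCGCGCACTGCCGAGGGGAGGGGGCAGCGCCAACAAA
Col4a2: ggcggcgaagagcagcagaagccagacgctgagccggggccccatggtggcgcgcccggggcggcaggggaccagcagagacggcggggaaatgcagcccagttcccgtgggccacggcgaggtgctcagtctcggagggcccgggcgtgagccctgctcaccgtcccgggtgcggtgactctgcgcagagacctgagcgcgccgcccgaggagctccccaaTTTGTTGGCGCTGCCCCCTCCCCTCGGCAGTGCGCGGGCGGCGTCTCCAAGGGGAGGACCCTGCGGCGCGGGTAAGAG
The windows are rich in G and C, at 74% and 73.7%, and neither holds the GATA, SOX or AP-1 motif searched.

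Genes that fold and modify secreted collagen and laminin went both ways. Of 23 tested genes of endoplasmic reticulum folding and matrix secretion, 10 were higher and 3 lower, and without XEN 7 16 and 4. Most of the higher calls did not hold with 1 MEF library left out. Over all genes, the number called higher fell from 3310 to 1610, 2015 and 1698 without MEF 1, 2 and 3. ER folding and matrix secretion genes called higher numbered 2 without MEF 1 or MEF 3, 4 without MEF 2 and 6 without XEN 2. ER folding and matrix secretion genes called lower numbered 1 without any 1 MEF library. P4ha2, a collagen prolyl hydroxylase subunit, had 1376, 937 and 471 CPM in XEN and 110.2, 109.9 and 91 CPM in MEF (log2 fold change 3.21, SE 0.42, adjusted p = 0.0022), and Plod2, a lysyl hydroxylase, had 1534, 1867 and 551 CPM and 156, 158 and 134 CPM (log2 fold change 3.19, SE 0.48, adjusted p = 0.00342). Serpinh1, the collagen chaperone HSP47, had 8461, 6495 and 1837 CPM and 2427, 3079 and 2921 CPM and was not called (log2 fold change 1.04, SE 0.56, adjusted p = 0.165); XEN 7 alone lay below MEF. Fkbp10, a prolyl isomerase for type I collagen, and Leprel2, a prolyl 3-hydroxylase, were lower, with log2 fold changes of -2.73 (adjusted p = 0.0249) and -5.37 (adjusted p = 0.000441). An adjusted p above 0.05 was reached by Fkbp10 without MEF 1, MEF 2, MEF 3 or XEN 2 (adjusted p = 0.0642 to 0.0761). Fkbp10 missed the threshold in the fit to all 17 libraries (adjusted p = 0.151).

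Among lysosomal genes, several proteases were higher. Of 22 tested genes, 7 were higher and 3 lower, with a median log2 fold change of 0.33. Ctsh, the protease cathepsin H, had 389, 307 and 711 CPM in XEN and 13.7, 11.2 and 10.5 CPM in MEF (log2 fold change 5.36, SE 0.41, adjusted p = 0.000434). Ctsl, cathepsin L, had 4002, 2965 and 2604 CPM and 642, 578 and 724 CPM (log2 fold change 2.35, SE 0.27, adjusted p = 0.00144), and Lgmn, the asparaginyl protease legumain, was higher (log2 fold change 2.52, adjusted p = 0.00138). Lamp2, a lysosomal membrane protein, was lower (log2 fold change -1.95, adjusted p = 0.00169). The groups did not overlap for any of these genes. Lysosome genes called lower numbered 1 without MEF 1, MEF 2, MEF 3 or XEN 2 and 5 by DESeq2.

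Clotting and fibrinolysis genes went both ways, 4 higher and 5 lower of 16 tested. Procr, the endothelial protein C receptor, had 66, 73.3 and 51.7 CPM in XEN and 8.52, 9.9 and 6.98 CPM in MEF (log2 fold change 2.96, SE 0.24, adjusted p = 0.000515), and Plaur, the urokinase receptor, was higher (log2 fold change 2.08, adjusted p = 0.0052). Plau, the urokinase that binds it, had 0.441, 1.05 and 0.982 CPM and 47, 66.8 and 51.7 CPM (log2 fold change -6.01, SE 0.43, adjusted p = 0.000366). The receptor gene was higher and the ligand gene lower. F3, the tissue factor that starts coagulation, had 1102, 811 and 6.62 CPM and 218, 200.3 and 171 CPM and was not called (log2 fold change 1.75, SE 1.34, adjusted p = 0.314); XEN 7 lay below MEF and the other XEN libraries above it. Clotting and fibrinolysis genes called higher numbered 7 without XEN 7. Clotting and fibrinolysis genes called lower numbered 3 without MEF 1, MEF 2, MEF 3, XEN 1 or XEN 2.

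Most epithelial genes tested were higher, and several differed widely among the XEN libraries. Of 25 listed genes 20 passed the filter, 15 were higher and 1 lower, with a median log2 fold change of 5.85. Krt8, a simple epithelial keratin, had 804, 1109 and 1236 CPM in XEN and 3.45, 6.51 and 3.12 CPM in MEF (log2 fold change 7.96, SE 0.48, adjusted p = 0.000217), and its partner Krt18 had 294, 433 and 1145 CPM and 2.59, 5.42 and 1.86 CPM (log2 fold change 7.61, SE 0.83, adjusted p = 0.00133). Cdh1, the epithelial cadherin, had 4.7, 25.3 and 164 CPM and 1.43, 0.602 and 2.27 CPM (log2 fold change 5.54, SE 1.41, adjusted p = 0.0204), and without XEN 7 the log2 fold change was 3.44 (adjusted p = 0.0125). Cldn6, a tight junction claudin, had 4.85, 98.8 and 207 CPM and 0.0387, 0.0376 and 0.0589 CPM (log2 fold change 11.08, SE 1.77, adjusted p = 0.00405). Epcam, an epithelial adhesion molecule, had 31.3, 39.3 and 16.8 CPM and 0.0774, 0 and 0.118 CPM (log2 fold change 8.72, SE 0.82, adjusted p = 0.000863), and Dsp, the desmosomal plaque protein desmoplakin, was higher (log2 fold change 6.16, adjusted p = 0.00214). Krt19, a keratin of simple epithelia, had 1.03, 69.6 and 708 CPM and 23.8, 35.9 and 9.34 CPM and was not called (log2 fold change 3.54, SE 1.83, adjusted p = 0.154). XEN 1 lay below MEF for Krt19 and XEN 7 far above it. Krt7 was the 1 lower gene, at 0.759, 2.04 and 2.49 CPM against 4.03, 8.99 and 5.51 CPM (log2 fold change -1.76, SE 0.58, adjusted p = 0.0461). Calls were lost for Cdh1 without any 1 MEF library (adjusted p = 0.0669 to 0.079) and Krt7 without MEF 1, MEF 2, MEF 3, XEN 1 or XEN 2 (adjusted p = 0.063 to 0.153). Cdh1 and Krt7 missed the threshold in the fit to all 17 libraries (adjusted p = 0.0543 and 0.26). Krt7 missed the threshold with no filter on low counts (adjusted p = 0.0538).

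Cdh2, the N-cadherin of mesenchymal and neural cells, did not mirror Cdh1. It stood at 0.0735, 1.71 and 102 CPM in XEN and 118, 139 and 118 CPM in MEF and was not called (log2 fold change -1.80, SE 1.85, adjusted p = 0.449). XEN 7, the library with the most Cdh1, also held nearly as much Cdh2 as MEF, whereas XEN 1 had almost none. Without XEN 7 the log2 fold change was -7.10 (adjusted p = 0.00223).

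Fibroblast matrix genes were lower without exception. Each of its 27 genes passed the filter and was lower in XEN cells, none with overlapping groups, and the median log2 fold change was -11.98. Col1a2, the other chain of type I collagen, had 15034, 11210.5 and 15246 CPM in MEF and 0.22, 0.165 and 4.3 CPM in XEN (log2 fold change -13.04, SE 1.84, adjusted p = 0.00276), and Col3a1, the type III collagen, had 12822, 8709 and 11978 CPM and 0.0245, 0.0275 and 1.43 CPM (log2 fold change -14.35, SE 1.94, adjusted p = 0.0024). In both, XEN 7 was the highest XEN library and still far below MEF. Fn1, fibronectin, had 9408, 7676 and 7311 CPM and 22.8, 43.4 and 49.5 CPM (log2 fold change -7.67, SE 0.48, adjusted p = 0.000243), a residual level in every XEN library. Postn, the adhesion protein periostin, had 1613, 1014 and 2417 CPM and 0.0245, 0.358 and 0.0196 CPM (log2 fold change -13.62, SE 1.27, adjusted p = 0.00084). Dcn, the proteoglycan decorin, was lower (log2 fold change -10.24, adjusted p = 0.00147) and Tnc, the matrix protein tenascin-C (log2 fold change -14.53, adjusted p = 9.33e-05). Thbs1, a matrix glycoprotein that activates latent TGF beta, had 5815, 5476 and 4226 CPM and 12.3, 46.7 and 579 CPM (log2 fold change -4.55, SE 1.44, adjusted p = 0.0405). XEN 7 held the most, and without it the log2 fold change was -7.40 (adjusted p = 0.000702). The count of 27 came down to 22 with any 1 MEF library left out, to 26 without XEN 1 and to 24 without XEN 2. With 1 library left out, the call was lost for Thbs1 without MEF 1, MEF 2, MEF 3 or XEN 2 (adjusted p = 0.0885 to 0.0945).

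Collagen VI, Mmp2 and Pdgfrb were each highest in XEN 1 among the XEN libraries, and far below MEF. Col6a1 and Col6a2, chains of the beaded-filament collagen VI, had 26.1, 0.275 and 0.255 CPM and 13, 0 and 0.0196 CPM in XEN against 2136, 1525 and 2116 CPM and 1546, 1070.2 and 1639.8 CPM in MEF. Mmp2, a gelatinase, had 10.1, 0.22 and 0.0393 CPM against 634, 406 and 727 CPM, and Pdgfrb, the PDGF beta receptor, 8.67, 1.35 and 0.0982 CPM against 509, 369.7 and 316 CPM. All were lower, with log2 fold changes of -7.72 (adjusted p = 0.0253), -8.31 (adjusted p = 0.0338), -7.37 (adjusted p = 0.0242) and -6.84 (adjusted p = 0.0125). Without XEN 1 the first 3 were -12.74 (adjusted p = 0.0004), -16.48 (adjusted p = 0.00041) and -12.15 (adjusted p = 0.00096). Leaving out 1 library ended the call of Mmp2 and Col6a2 without MEF 1, MEF 2, MEF 3 or XEN 2 (adjusted p = 0.0503 to 0.0852) and Col6a1 without any 1 MEF library (adjusted p = 0.0592 to 0.0677).

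Most mesenchymal transcription factors were lower as well. Of 23 tested, 18 were lower and 1 higher, with a median log2 fold change of -5.02. Prrx1, a limb and craniofacial mesenchyme homeobox factor, had 701, 602 and 784 CPM in MEF and 0.171, 0.165 and 0.0982 CPM in XEN (log2 fold change -12.17, SE 0.36, adjusted p = 6.69e-05). Osr1, a zinc finger factor of lateral plate mesoderm, was at 88.4, 64.9 and 72.4 CPM against 0.049, 0 and 0 CPM, a ratio of 4798 (95% counting interval 1328 to 39629) in favour of MEF. Twist2 and Meox2, mesodermal factors of the basic helix-loop-helix and homeobox families, were at 0 counts in XEN and at least 752-fold and 1322-fold lower. Snai2, the zinc finger repressor Slug, was lower (log2 fold change -6.08, adjusted p = 0.00225), and Zeb1, a repressor of epithelial genes (log2 fold change -2.36, adjusted p = 0.00989) with 42.3, 13.4 and 15.1 CPM left in XEN. Msx2, a homeobox factor, was the 1 higher gene, with 3.55, 17.4 and 18 CPM in XEN against 1.82, 1.84 and 2.77 CPM in MEF (log2 fold change 2.65, SE 0.66, adjusted p = 0.019). The call did not hold for Msx2 without any 1 MEF library (adjusted p = 0.0598 to 0.079). Msx2 missed the threshold with the replicate block (adjusted p = 0.0658).

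Most surface and contractile genes of fibroblasts were lower. Thy1, a glycolipid-anchored glycoprotein, had 334, 385 and 128 CPM in MEF and 0.0245, 0.0825 and 0.0196 CPM in XEN (log2 fold change -12.63, SE 0.80, adjusted p = 0.000243), and MEF 3 was the lowest MEF library. Of 14 surface genes 10 were lower and 0 higher. Vcam1, an adhesion molecule for leukocytes, had 10.2, 17.2 and 438 CPM and 242, 226 and 172 CPM and was not called (log2 fold change -0.41, SE 1.32, adjusted p = 0.817), and XEN 7 exceeded MEF. Of 14 smooth muscle genes 12 were lower (median log2 fold change -5.34). Acta2, smooth muscle actin, had 2724, 5219 and 2239 CPM in MEF and 9.65, 60.2 and 0.275 CPM in XEN (log2 fold change -7.14, SE 1.84, adjusted p = 0.0213), and Tagln, an actin-binding protein, had 1029, 1869 and 868 CPM and 3.23, 15.4 and 1.87 CPM (log2 fold change -7.48, SE 1.06, adjusted p = 0.00285). Within MEF, library 2 was highest for both. A left-out library took the adjusted p past 0.05 for Acta2 without MEF 1, MEF 2, MEF 3 or XEN 1 (adjusted p = 0.0527 to 0.0566).

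The plot of calls per list places these groups beside the others described here. Over all genes tested, 23% were higher and 24.5% lower, and a list near these shares does not stand out from the rest of the transcriptome.

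**Figure D4:**
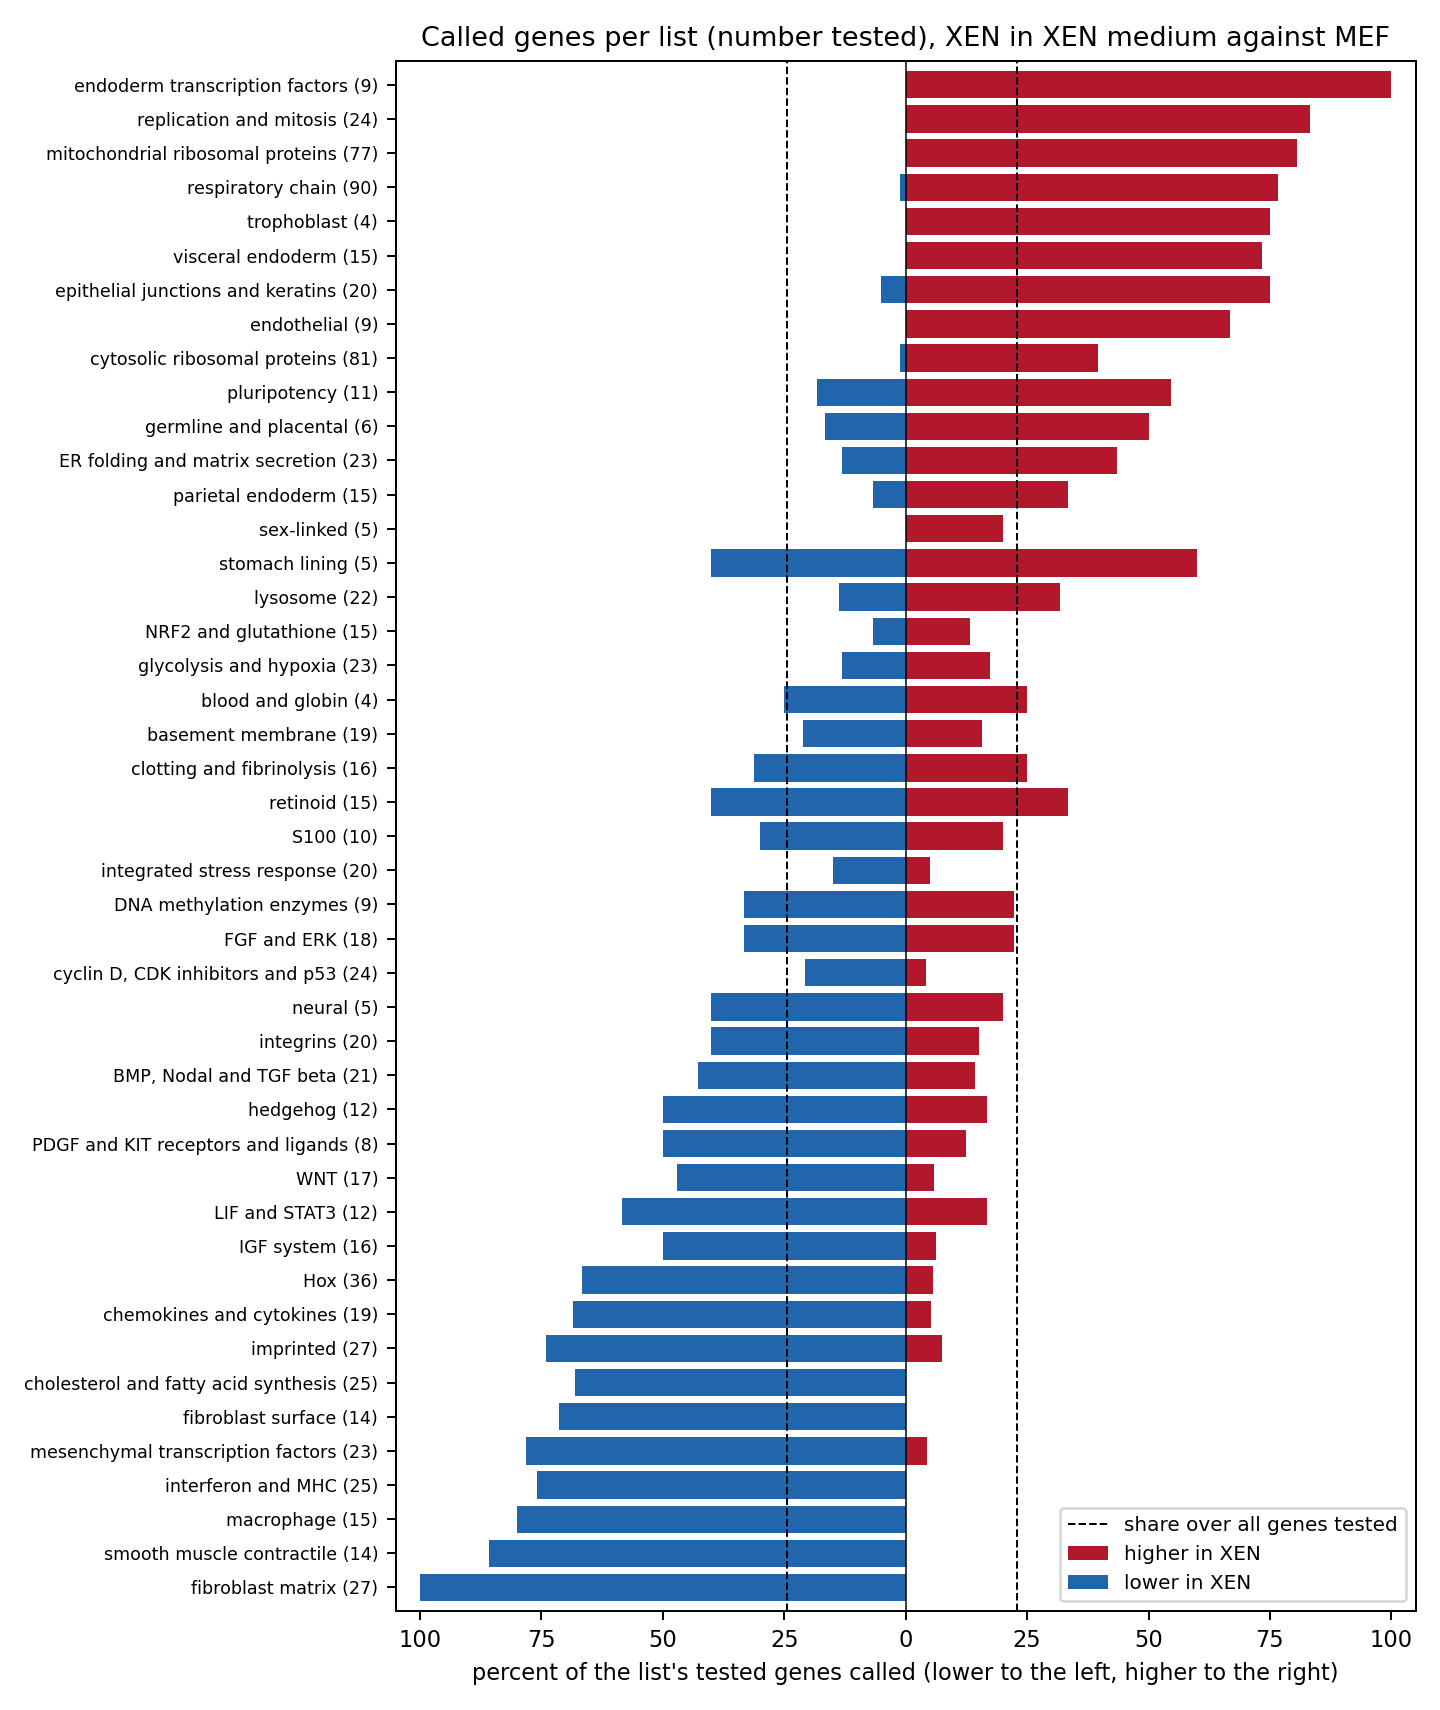
Each row is 1 of the 45 gene lists with its number of tested genes in parentheses, and the bars give the percent of those genes called lower in XEN cells, in blue to the left, and higher, in red to the right. The dashed lines mark the shares over all genes tested, 24.5% lower and 23% higher. Endoderm transcription factors and fibroblast matrix genes lie at the ends, and retinoid, clotting and basement membrane genes have calls on both sides.

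Markers of other cell types were checked in both groups. The 15 macrophage genes were lower in 12 cases and higher in 0, and their summed level was 112 to 350.5 CPM in MEF and 6.29, 7.26 and 17.1 CPM in XEN. Lyz2, the lysozyme of macrophages, had 44.9, 69.6 and 143 CPM in MEF and 0.147, 0.0275 and 0.0785 CPM in XEN (log2 fold change -9.86, SE 0.76, adjusted p = 0.000448). The complement genes C1qa, C1qb and C1qc and the macrophage receptor gene Emr1 were at 0 counts in XEN, and MEF 3 was the highest MEF library for each. Of 12 listed blood and globin genes 4 passed the filter, 1 of them higher and 1 lower. Of 12 listed neural genes 5 passed it, 1 of them higher and 2 lower. Stmn2, a tubulin-binding protein of neurons, had 32.4, 23.7 and 15.8 CPM in MEF against 0, 0 and 0.0982 CPM in XEN (log2 fold change -9.16, SE 1.07, adjusted p = 0.00159). Blood and globin genes called lower numbered 3 without XEN 7.

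Of 13 listed endothelial genes 9 passed the filter. Of these, 6 were higher in XEN cells and 0 lower, a count that depended on each MEF library. Endothelial genes called higher numbered 3 without any 1 MEF library. Over all genes, the number called higher fell from 3310 to between 1610 and 2015 in the same fits. Endothelial genes called lower numbered 2 without XEN 7. Cdh5, the cadherin of endothelial junctions, had 159.8, 78.6 and 304 CPM in XEN and 3.99, 1.81 and 2.5 CPM in MEF (log2 fold change 6.09, SE 0.65, adjusted p = 0.00123), and Tek, the angiopoietin receptor Tie2, had 117, 96.4 and 358 CPM and 15.1, 9.14 and 10.1 CPM (log2 fold change 4.11, SE 0.60, adjusted p = 0.00318). Both were present in every XEN library. Pecam1, the adhesion molecule CD31, had 0.367, 0.385 and 179 CPM and 0.116, 0.113 and 0.0589 CPM (log2 fold change 9.32, SE 3.03, adjusted p = 0.0445), and Vwf, von Willebrand factor, 21, 11.2 and 649 CPM and 1.28, 1.88 and 2.56 CPM (log2 fold change 6.94, SE 1.83, adjusted p = 0.0229). Most of either came from XEN 7, and without that library Pecam1 had a log2 fold change of 2.01 (adjusted p = 0.0171) and Vwf of 3.12 (adjusted p = 0.0016). Cldn5, an endothelial claudin, was at 0 counts in all 6 libraries, and Kdr, the main VEGF receptor, had 4.41, 4.02 and 8.48 CPM against 1.94, 3.42 and 2.65 CPM and was not called (log2 fold change 1.12, SE 0.45, adjusted p = 0.0824). The threshold was missed by Pecam1 and Vwf without any 1 MEF library (adjusted p = 0.0831 to 0.141).

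Of 21 listed pluripotency genes 11 passed the filter, 6 of them higher and 2 lower. The core factors Pou5f1, Nanog and Sox2 were low in both groups. Pou5f1 (Oct4) had 4.43, 0.605 and 0.471 CPM in XEN and 0.116, 0.0376 and 0.0295 CPM in MEF (log2 fold change 4.92, SE 1.22, adjusted p = 0.0185), with XEN 1 the highest. Without XEN 1 its log2 fold change was 3.17 (adjusted p = 0.0155). Nanog, a homeobox factor, had 0.881, 1.35 and 1.26 CPM and 0.929, 0.941 and 1.09 CPM and was not called (log2 fold change 0.29, SE 0.36, adjusted p = 0.542). Sox2, an HMG box factor, had 1.66, 1.92 and 3.8 CPM in MEF and 0.049, 0 and 0 CPM in XEN, 2 counts in all, a ratio of 165 (95% counting interval 45.3 to 1374) in favour of MEF. Klf4, a zinc finger factor, had 474, 234 and 132 CPM and 141, 128 and 186 CPM (log2 fold change 0.93, SE 0.46, adjusted p = 0.14), and Myc, a growth regulator, 29.3, 40.8 and 49.2 CPM and 48.6, 50.4 and 39.2 CPM (log2 fold change -0.16, SE 0.24, adjusted p = 0.599); neither was called. Besides Lin28a and Sall4, Zfp42 (Rex1) had 16.8, 20.2 and 0.668 CPM and 0, 0.188 and 0 CPM (log2 fold change 7.67, SE 1.84, adjusted p = 0.0166), nearly absent from XEN 7, and its log2 fold change was 11.90 (adjusted p = 0.0425) without MEF 2. Klf5, a relative of Klf4, was higher (log2 fold change 2.94, adjusted p = 0.0103) and Klf2 lower (log2 fold change -2.36, adjusted p = 0.0185), a value that the replicate block moved to -1.49 (adjusted p = 0.0213). Pluripotency genes called higher numbered 2 without MEF 3 and 3 without MEF 1. An adjusted p above 0.05 was reached by Pou5f1 without any 1 MEF library (adjusted p = 0.0523 to 0.0803), Zfp42 without MEF 1 or MEF 3 (adjusted p = 0.0655 to 0.0662), and Klf5 without MEF 3 (adjusted p = 0.0518). Calls were lost for Klf2 without MEF 3 or XEN 2 (adjusted p = 0.0573 to 0.068). Pou5f1 and Sox2 missed the threshold in the fit to all 17 libraries (adjusted p = 0.0645 and 0.0741).

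Trophoblast and germline lists held few genes past the filter. Of 13 listed trophoblast genes 4 passed it, and 3 of these were higher (median log2 fold change 5.09, or 4.11 with Cdx2 at its bound). Cdx2, a homeobox factor of trophectoderm and hindgut, had 0.318, 2.34 and 5.97 CPM in XEN and 0 counts in MEF, at least 90.3-fold higher. Eomes, a T-box factor of trophoblast and early endoderm, had 1.93, 0.88 and 0.668 CPM and 0.348, 0.263 and 0.471 CPM (log2 fold change 1.72, SE 0.55, adjusted p = 0.0425). Of 20 listed germline and placental genes 6 passed the filter, 3 of them higher and 1 lower. Trap1a, an X-linked tumour antigen gene, had 353, 211 and 232 CPM in XEN and 0.232, 0.339 and 0.265 CPM in MEF (log2 fold change 9.92, SE 0.37, adjusted p = 9.33e-05), and Xlr3a, an X-linked gene with near-identical copies and so an uncertain count, had 38.5, 46 and 41.8 CPM and 0.271, 0.376 and 0.206 CPM (log2 fold change 7.25, SE 0.33, adjusted p = 0.000122). Ddx4, the germ cell RNA helicase Vasa, was at 15.9, 16.7 and 7.19 CPM in MEF and 2 counts in XEN. Trophoblast genes called higher numbered 1 without MEF 3 or XEN 2. Germline and placental genes called lower numbered 3 without XEN 7. With 1 library left out, the call was lost for Cdx2 without MEF 3 or XEN 2 (adjusted p = 0.053 to 0.0548) and Eomes without MEF 1, MEF 2, MEF 3, XEN 1 or XEN 2 (adjusted p = 0.0581 to 0.151). Eomes missed the threshold in the fit to all 17 libraries (adjusted p = 0.171). Eomes missed the threshold with the replicate block (adjusted p = 0.0554). Eomes missed the threshold with no filter on low counts (adjusted p = 0.0645).

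Imprinted genes were lower in most cases. Of 27 tested, 20 were lower and 2 higher, with a median log2 fold change of -4.34. Igf2, the paternally expressed growth factor, had 8266, 8450.3 and 10074 CPM in MEF and 5.29, 0.0825 and 0.0196 CPM in XEN (log2 fold change -12.24, SE 2.33, adjusted p = 0.00743). H19, the maternally expressed non-coding RNA next to it, had 8692, 10460.3 and 9754 CPM and 7.74, 29.4 and 136 CPM (log2 fold change -7.33, SE 1.22, adjusted p = 0.00477). H19 was highest in XEN 7 and Igf2 in XEN 1. The Dlk1 cluster was nearly silent, with Dlk1, a transmembrane ligand, at 596, 649 and 908 CPM against 0.122, 0.055 and 0 CPM (log2 fold change -13.51, SE 0.88, adjusted p = 0.000273) and Meg3, its maternally expressed non-coding partner, at 989.7, 689 and 931 CPM against 0.0735, 0.523 and 0 CPM (log2 fold change -12.11, SE 1.35, adjusted p = 0.00141). Both the paternally and the maternally expressed members of this cluster were lower. Grb10, an adaptor that restrains growth, was lower (log2 fold change -8.40, adjusted p = 0.000616), Mest (log2 fold change -8.70, adjusted p = 0.00015) and Cdkn1c, a cyclin-dependent kinase inhibitor (log2 fold change -6.63, adjusted p = 0.00289). Peg10, a retrotransposon-derived gene needed for placenta, was higher with 325, 352 and 513 CPM against 120.3, 106 and 141 CPM (log2 fold change 1.75, SE 0.24, adjusted p = 0.00265). Phlda2, a placental growth restrainer, was higher at a low level, 2.99, 1.71 and 0.393 CPM against 0, 0.226 and 0.118 CPM (log2 fold change 3.87, SE 1.16, adjusted p = 0.034). Leaving out 1 library ended the call of Phlda2 without MEF 1, MEF 2, MEF 3, XEN 1 or XEN 2 (adjusted p = 0.064 to 0.125). Peg10 and Phlda2 missed the threshold in the fit to all 17 libraries (adjusted p = 0.137 and 0.107). Phlda2 missed the threshold with the replicate block (adjusted p = 0.0503).

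Genes of the IGF system were lower at several steps. Of 16 genes 8 were lower and 1 higher. Igf1r, the receptor, had 12, 36.8 and 39.2 CPM in XEN and 142, 142 and 132 CPM in MEF (log2 fold change -2.19, SE 0.45, adjusted p = 0.00982), and Igf2r, which clears Igf2 and is itself imprinted, was lower (log2 fold change -1.92, adjusted p = 0.00151). The binding proteins Igfbp3 and Igfbp7 were lower, with log2 fold changes of -8.05 (adjusted p = 0.0126) and -11.36 (adjusted p = 0.000373). Igf2bp1, an oncofetal RNA-binding protein, was the 1 higher gene, with 314, 369 and 391 CPM against 46.1, 48.7 and 35.3 CPM (log2 fold change 3.09, SE 0.22, adjusted p = 0.00034). Insr, the insulin receptor, had 182, 90.0 and 53.1 CPM against 51.8, 44.7 and 57.3 CPM and was not called (log2 fold change 1.13, SE 0.44, adjusted p = 0.0746). IGF system genes called higher numbered 3 without XEN 7.

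Receptor tyrosine kinase genes went both ways. Of 8 PDGF and KIT genes 1 was higher and 4 were lower, and of 18 FGF and ERK genes 4 were higher and 6 lower. Kit, the stem cell factor receptor, had 386, 264 and 149 CPM in XEN and 1.39, 1.35 and 1.8 CPM in MEF (log2 fold change 7.50, SE 0.47, adjusted p = 0.000233). Its ligand Kitl had 20.1, 61.1 and 12.8 CPM and 103, 99.7 and 115 CPM and was not called (log2 fold change -1.70, SE 0.58, adjusted p = 0.0506). DESeq2 called Kitl lower (adjusted p = 0.00864). So did edgeR with RLE size factors, with the filter of 1 CPM in 3 libraries, and without XEN 2 or XEN 7 (adjusted p = 0.00316 to 0.0479). The remaining settings did not call it. Among FGF receptors, Fgfr3 and Fgfr4 were higher, with log2 fold changes of 3.81 (adjusted p = 0.0094) and 5.65 (adjusted p = 0.00841), and Fgfr2 was lower (log2 fold change -3.01, adjusted p = 0.0131). Fgfr1, the main fibroblast receptor, had 4.73, 2.67 and 66.1 CPM against 286, 242 and 316 CPM and was not called (log2 fold change -3.47, SE 1.24, adjusted p = 0.0595). XEN 7 held far more than the other XEN libraries, and without XEN 7 its log2 fold change was -6.19 (adjusted p = 9.71e-05). Klb, the co-receptor for endocrine FGFs, had 11.8, 47.8 and 15.4 CPM and 0.194, 0 and 0.0884 CPM (log2 fold change 8.07, SE 1.10, adjusted p = 0.00247). Spry4, a feedback inhibitor of ERK signalling, was higher, with a log2 fold change of 1.63 (adjusted p = 0.0314) and of 0.93 (adjusted p = 0.183) in the fit with the replicate block, while Dusp6, the ERK phosphatase, had 3.06, 2.67 and 76.8 CPM against 44.4, 58.4 and 43 CPM and was not called (log2 fold change -0.77, SE 1.26, adjusted p = 0.636). XEN 1 and 2 were far below MEF for Dusp6 and XEN 7 was above. PDGF and KIT receptor and ligand genes called lower numbered 2 without any 1 MEF library. The call did not hold for Spry4 without MEF 1, MEF 2, MEF 3 or XEN 1 (adjusted p = 0.0625 to 0.113).

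Of 12 LIF and STAT3 genes 2 were higher and 7 lower. Lifr, the LIF-binding chain, had 667, 378 and 127 CPM in XEN and 76.3, 58.4 and 67.8 CPM in MEF (log2 fold change 2.58, SE 0.58, adjusted p = 0.0132), and Lif, its cytokine, was higher (log2 fold change 2.79, adjusted p = 0.00363). Il6st (gp130), the signalling chain shared with interleukin 6, had 83.1, 47.8 and 133 CPM and 1378, 1208 and 1005 CPM (log2 fold change -3.72, SE 0.43, adjusted p = 0.00151). Osmr, the oncostatin M receptor, was lower (log2 fold change -9.17, adjusted p = 0.00255). Socs3, a STAT3 target and feedback inhibitor, had 58, 81.6 and 56.1 CPM and 73.5, 73.4 and 79.8 CPM and was not called (log2 fold change -0.16, SE 0.19, adjusted p = 0.516). LIF and STAT3 genes called lower numbered 4 without MEF 3. A left-out library took the adjusted p past 0.05 for Lifr without any 1 MEF library (adjusted p = 0.0528 to 0.0597).

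BMP and TGF beta genes were higher in 3 and lower in 9 of 21 cases. Bmp2, a ligand of visceral endoderm, had 85, 67.9 and 64.2 CPM in XEN and 1.24, 0.715 and 3.71 CPM in MEF (log2 fold change 5.30, SE 0.66, adjusted p = 0.00186), and Bmp4, its relative, had 0.196, 0.11 and 5.34 CPM and 35.4, 40.6 and 51.1 CPM (log2 fold change -4.42, SE 1.44, adjusted p = 0.0447) and a log2 fold change of -8.01 (adjusted p = 6.29e-05) without XEN 7. Nog, the BMP antagonist noggin, had 168, 58.8 and 0.255 CPM and 1.24, 1.69 and 2.24 CPM (log2 fold change 5.49, SE 1.82, adjusted p = 0.0474) and was lost from XEN 7. Gdf10, a TGF beta family ligand, was at 0 counts in XEN and at least 1476-fold lower. Id3, a BMP target, had 0.343, 6.35 and 98 CPM and 150.0, 240.0 and 286 CPM and was not called (log2 fold change -2.64, SE 1.61, adjusted p = 0.215), with XEN 7 the highest XEN library. Tgfbr2, the type II TGF beta receptor, was lower (log2 fold change -2.82, adjusted p = 0.00911). BMP, Nodal and TGF beta genes called higher numbered 1 without MEF 1 or MEF 3. The threshold was missed by Bmp4 and Nog without MEF 1, MEF 2, MEF 3, XEN 1 or XEN 2 (adjusted p = 0.0653 to 0.144). Bmp4 missed the threshold in the fit to all 17 libraries (adjusted p = 0.121).

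WNT and hedgehog genes were lower more often than higher, 8 of 17 and 6 of 12. Sfrp1, a secreted WNT antagonist, had 833, 737 and 675 CPM in MEF and 1, 0.77 and 0.982 CPM in XEN (log2 fold change -9.61, SE 0.27, adjusted p = 6.69e-05), and Lgr5, the R-spondin receptor, was at 84.5, 51.7 and 57.7 CPM against 0, 0.0275 and 0.0393 CPM, a ratio of 2729 (95% counting interval 933 to 13235) in favour of MEF. Axin2, a direct WNT target, had 17.9, 10.2 and 2.71 CPM against 9.49, 3.88 and 6.86 CPM and was not called (log2 fold change 0.66, SE 0.69, adjusted p = 0.459). Besides Ihh, the ligand Dhh was higher (log2 fold change 3.42, adjusted p = 0.0278, and without XEN 1 2.20 (adjusted p = 0.0505)). Lower genes on the responding side included the co-receptor Cdon at 4.68, 4.51 and 9.27 CPM against 361, 203 and 476 CPM (log2 fold change -5.76, SE 0.50, adjusted p = 0.000655) and the effector Gli2 at 0 counts in XEN, at least 2190.4-fold lower. WNT genes called higher numbered 4 without XEN 7. An adjusted p above 0.05 was reached by Dhh without MEF 1, MEF 2, MEF 3 or XEN 1 (adjusted p = 0.0505 to 0.104).

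Retinoid genes went both ways. Cyp26a1, which breaks down retinoic acid, had 18.8, 20.4 and 9.88 CPM in XEN and 0, 0.113 and 0.0589 CPM in MEF (log2 fold change 8.10, SE 0.85, adjusted p = 0.00118), and Rbp4, the serum retinol carrier, was higher (log2 fold change 2.61, adjusted p = 0.0109). Crabp1, the cellular retinoic acid-binding protein, had 0.637, 0.055 and 0.393 CPM and 221, 218 and 187 CPM (log2 fold change -9.09, SE 0.78, adjusted p = 0.000609), and Aldh1a2, which makes retinoic acid, was at 9.18, 11.6 and 4.98 CPM in MEF and a single count in XEN. Among receptor genes, Rarb was higher (log2 fold change 2.14, adjusted p = 0.00799) and Rarg was lower (log2 fold change -4.63, adjusted p = 0.000555). Over the list 5 genes were higher and 6 lower of 15 tested. Rbp4 missed the threshold in the fit to all 17 libraries (adjusted p = 0.116).

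Many inflammatory and interferon genes were lower. Of 19 chemokine and cytokine genes 13 were lower and 1 higher, and of 25 interferon and MHC genes 19 were lower and 0 higher. Cxcl12, the ligand of Cxcr4, had 375, 377 and 726 CPM in MEF and 0.955, 0.77 and 0.0785 CPM in XEN (log2 fold change -9.64, SE 1.02, adjusted p = 0.00119). Ccl2, a monocyte chemokine, had 68.7, 168 and 41.2 CPM and 0.049, 0.413 and 0.0196 CPM (log2 fold change -9.20, SE 1.21, adjusted p = 0.00218). Isg15, an interferon-induced ubiquitin-like protein, had 52.5, 49.7 and 51.5 CPM and 0.147, 0.303 and 0.707 CPM (log2 fold change -6.97, SE 0.61, adjusted p = 0.000674), and Psmb8, an immunoproteasome subunit, had 20.8, 21.3 and 22.2 CPM and 0.049, 0.055 and 0.0785 CPM (log2 fold change -8.31, SE 0.35, adjusted p = 9.33e-05). B2m, the light chain of MHC class I, was lower (log2 fold change -0.82, adjusted p = 0.013), whereas the heavy chain gene H2-K1, which has close paralogs and so an uncertain count, had 241, 75 and 79.3 CPM and 129, 88.8 and 116 CPM and was not called (log2 fold change 0.29, SE 0.48, adjusted p = 0.64). The macrophage genes described above moved the same way, at a summed level of at most 350.5 CPM in a MEF library; their part in the immune lists was not tested. Interferon and MHC genes called lower numbered 11 without MEF 1 and 12 without MEF 3. Calls were lost for B2m without MEF 1 or MEF 3 (adjusted p = 0.0518 to 0.0563). B2m missed the threshold in the fit to all 17 libraries (adjusted p = 0.283). B2m missed the threshold with the replicate block (adjusted p = 0.076).

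Sterol synthesis genes were lower more often than higher. Of 25 tested genes of cholesterol and fatty acid synthesis 17 were lower and 0 higher, with a median log2 fold change of -1.41. Lss, lanosterol synthase, had 23.4, 24.1 and 23.3 CPM in XEN and 155, 165 and 103 CPM in MEF (log2 fold change -2.53, SE 0.23, adjusted p = 0.000717), and Nsdhl, a later sterol dehydrogenase, had 27.7, 31.3 and 30.1 CPM and 150.2, 147 and 101 CPM (log2 fold change -2.11, SE 0.21, adjusted p = 0.000992). The 3 XEN libraries lay close together for both. Acaca, the first enzyme of fatty acid synthesis, was lower (log2 fold change -1.64, adjusted p = 0.00143). Cholesterol and fatty acid synthesis genes called lower numbered 10 without MEF 1 or MEF 2.

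Most genes of DNA replication and mitosis were higher. Of 24 genes 20 were higher, with a median log2 fold change of 1.45. Cdc6, a replication licensing factor, had 107, 182 and 111 CPM in XEN and 10.6, 18.8 and 8.48 CPM in MEF (log2 fold change 3.45, SE 0.41, adjusted p = 0.00168). Mcm2, a helicase subunit, was higher (log2 fold change 1.95, adjusted p = 0.00329) and Ccnb1, mitotic cyclin B1 (log2 fold change 1.93, adjusted p = 0.00317). Mki67, the Ki-67 antigen, had 283, 346 and 288 CPM and 205, 263 and 195 CPM and was not called (log2 fold change 0.51, SE 0.20, adjusted p = 0.0799). Of 24 genes of cyclin D, inhibitors and p53 1 was higher and 5 were lower. Cdkn1a (p21) had 115, 142 and 130.0 CPM and 267, 361 and 237 CPM (log2 fold change -1.12, SE 0.23, adjusted p = 0.0094), and Cdkn1b (p27) was higher (log2 fold change 0.76, adjusted p = 0.0295). Ccnd1, cyclin D1, had 1.3, 11.1 and 111 CPM and 141, 229 and 151 CPM and was not called (log2 fold change -2.03, SE 1.35, adjusted p = 0.253), with XEN 1 the lowest and XEN 7 the highest XEN library. Replication and mitosis genes called higher numbered 13 without MEF 1. Cyclin D, CDK inhibitors and p53 genes called lower numbered 3 without any 1 MEF library and 11 without XEN 7. With 1 library left out, the call was lost for Cdkn1b without MEF 1, MEF 2 or XEN 1 (adjusted p = 0.0642 to 0.124). Cdkn1a and Cdkn1b missed the threshold in the fit to all 17 libraries (adjusted p = 0.103 and 0.195).

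Most mitochondrial genes tested were higher as well, in a count that depended on single MEF libraries. So did the count over all genes, with 3310 higher, 1610 without MEF 1 and 1698 without MEF 3. Of 77 mitochondrial ribosomal protein genes 62 were higher and 0 lower (median log2 fold change 1.15), and of 90 respiratory chain genes 69 were higher and 1 lower (median 1.03). Cox5a, a subunit of cytochrome c oxidase, had 183, 313 and 92 CPM in XEN and 25.3, 55.7 and 60.7 CPM in MEF (log2 fold change 2.10, SE 0.54, adjusted p = 0.0213). Sdha, the flavoprotein of succinate dehydrogenase, had 209, 219.6 and 262 CPM and 249.6, 261 and 220.2 CPM and was not called (log2 fold change -0.03, SE 0.18, adjusted p = 0.896). Among 81 cytosolic ribosomal protein genes, whose many pseudogenes make counts uncertain, 32 were higher and 1 lower, with a median of 0.55. Glycolysis and hypoxia genes were 4 higher and 3 lower of 23. Slc2a3, the glucose transporter GLUT3, had 307, 517 and 5187 CPM and 9.25, 8.77 and 12.1 CPM (log2 fold change 7.69, SE 1.37, adjusted p = 0.00592), the highest being XEN 7, and Gapdh had 314, 938 and 788 CPM and 711, 962 and 480.0 CPM (log2 fold change -0.03, SE 0.47, adjusted p = 0.963). Mitochondrial ribosomal protein genes called higher numbered 39 without MEF 1. Respiratory chain genes called higher numbered 36 without MEF 1 and 38 without MEF 3. Cytosolic ribosomal protein genes called higher numbered 9 without MEF 3, 10 without MEF 1, 20 without MEF 2 and 21 without XEN 2. Cytosolic ribosomal protein genes called lower numbered 3 by DESeq2. Glycolysis and hypoxia genes called lower numbered 1 without MEF 1, MEF 2, MEF 3 or XEN 1 and 6 without XEN 7 or by DESeq2. Leaving out 1 library ended the call of Cox5a without any 1 MEF library (adjusted p = 0.059 to 0.0664).

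Stress response lists showed few calls and a marked difference between XEN libraries. Of 20 genes of the integrated stress response, which the factor Atf4 drives, 1 was higher and 3 were lower. Atf4 itself had 857, 260.4 and 175 CPM in XEN and 294, 324 and 288 CPM in MEF (log2 fold change 0.56, SE 0.58, adjusted p = 0.457), and its target Trib3 had 230.1, 4.87 and 11.2 CPM and 57.5, 42.1 and 43.3 CPM (log2 fold change 0.83, SE 1.30, adjusted p = 0.624). XEN 1 lay above MEF and XEN 2 and 7 below it for these and for Chac1, a glutathione-degrading enzyme. Without XEN 1, 1 gene was higher and 8 were lower. Aldh1l2, a mitochondrial folate enzyme, was lower (log2 fold change -7.06, adjusted p = 0.000955). Of 15 NRF2 and glutathione genes 2 were higher and 1 was lower. Integrated stress response genes called higher numbered 5 without XEN 7. NRF2 and glutathione genes called lower numbered 5 without XEN 7.

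Hox genes were lower in 24 and higher in 2 of 36 tested cases. Hoxb9 was at 35.7, 34.2 and 26.8 CPM in MEF and 0.0245, 0 and 0.0589 CPM in XEN (log2 fold change -9.85, SE 0.67, adjusted p = 0.000318) and Hoxb2, Hoxb5, Hoxb6 and Hoxb7 were at 0 counts in XEN. Hoxb4 departed from its neighbours, at 7.42, 3.71 and 8.74 CPM in XEN against 5.77, 8.09 and 6.21 CPM in MEF, and was not called (log2 fold change 0.03, SE 0.40, adjusted p = 0.957). Hoxc13, at the 5′ end of its cluster, was 1 of the higher genes, with 6.46, 4.51 and 6.2 CPM against 0.31, 0.602 and 0.53 CPM (log2 fold change 3.61, SE 0.44, adjusted p = 0.00173). The strand setting is not given in the sources used here, and adjacent and antisense Hox transcripts may share reads. Hoxb5 missed the threshold in the fit to all 17 libraries (adjusted p = 0.0569).

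Of 20 integrin genes 3 were higher and 8 lower. Of the laminin-binding integrin chains, Itga3 and Itga6 were higher, Itga6 at 268, 146 and 182 CPM in XEN and 26.1, 26.6 and 25.7 CPM in MEF (log2 fold change 2.97, SE 0.26, adjusted p = 0.000662), and Itga7 was lower (log2 fold change -2.55, adjusted p = 0.0241). Of the collagen-binding chains, Itga1, Itga10 and Itga11 were lower, with log2 fold changes of -3.87 (adjusted p = 0.00536), -1.84 (adjusted p = 0.0249) and -7.31 (adjusted p = 0.00272), and Itga2 was not called, at -1.37 (adjusted p = 0.368). Itgb1, their common partner, had 863, 936 and 417 CPM and 1154, 1265 and 1186 CPM and was not called (log2 fold change -0.65, SE 0.33, adjusted p = 0.151). Of 9 DNA methylation genes 2 were higher and 3 lower. Dnmt3b, a de novo DNA methyltransferase, had 72.5, 88.7 and 86.4 CPM in XEN and 3.6, 2.93 and 3.74 CPM in MEF (log2 fold change 4.64, SE 0.20, adjusted p = 9.33e-05), while Dnmt3a, its relative, was lower (log2 fold change -1.05, adjusted p = 0.0205) and Tet2, which oxidises methylcytosine (log2 fold change -1.54, adjusted p = 0.0214). Of 10 S100 genes 2 were higher and 3 lower. S100a4, a calcium-binding protein used as a fibroblast marker, had 478, 836 and 575 CPM in MEF and 0.0735, 0.468 and 12.4 CPM in XEN (log2 fold change -7.13, SE 1.86, adjusted p = 0.0219), and the log2 fold change was -11.15 (adjusted p = 0.000218) without XEN 7. S100g, the calcium-binding protein calbindin-D9k of absorptive epithelia, was higher (log2 fold change 6.38, adjusted p = 0.0106). Integrin genes called lower numbered 5 without MEF 1 or MEF 3. DNA methylation enzyme genes called lower numbered 0 without MEF 1 or MEF 3 and 1 without XEN 1 or XEN 2. S100 genes called lower numbered 1 without any 1 MEF library and 5 without XEN 7. The call did not hold for Itga7 and S100a4 without MEF 1, MEF 2, MEF 3 or XEN 2 (adjusted p = 0.0503 to 0.0763), Itga10 and Tet2 without MEF 1, MEF 3 or XEN 1 (adjusted p = 0.0545 to 0.0955), and Dnmt3a without MEF 1, MEF 3, XEN 1 or XEN 2 (adjusted p = 0.0516 to 0.0743). A left-out library took the adjusted p past 0.05 for S100g without MEF 3 (adjusted p = 0.0525). Tet2 missed the threshold in the fit to all 17 libraries (adjusted p = 0.166). Itga10 missed the threshold with the replicate block (adjusted p = 0.169).

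The XEN libraries differed in genes beyond those above. Xist, the RNA that coats the inactive X chromosome, had 2.03, 2.45 and 1091 CPM in XEN and 0.348, 0.489 and 0.501 CPM in MEF (log2 fold change 9.71, SE 2.97, adjusted p = 0.0368), and without XEN 7 the log2 fold change was 2.36 (adjusted p = 0.00316). Ddx3y, a Y-linked RNA helicase, had 0.0245, 71 and 0 CPM and 89.1, 82.4 and 108 CPM, and Eif2s3y, a Y-linked translation factor subunit, 15.5, 61.5 and 0 CPM and 84.1, 74.8 and 82.8 CPM. XEN 7 carried Xist and no counts of these Y-linked genes, XEN 2 had low Xist and both Y-linked genes, and XEN 1 had low Xist, some Eif2s3y and almost no Ddx3y. Of 5 sex-linked genes 1 was called. Of 14 listed stomach lining genes 5 passed the filter, 3 of them higher and 2 lower. Gkn1, a secreted protein of stomach surface cells, had 12.1, 9.49 and 965 CPM and 0.271, 0.188 and 0.412 CPM (log2 fold change 10.16, SE 2.45, adjusted p = 0.017) and Gkn2, its relative, 66.2, 48.3 and 1915 CPM and 1.32, 1.32 and 1.24 CPM (log2 fold change 9.08, SE 1.89, adjusted p = 0.0103). Both were above MEF in each XEN library, with XEN 7 far above the rest, and without XEN 7 the log2 fold changes were 5.23 (adjusted p = 0.000241) and 5.52 (adjusted p = 4.81e-05). Itgb2, a leukocyte integrin chain, had 0.245, 0.22 and 155 CPM in XEN against 4.18, 4.36 and 8.07 CPM in MEF. It was not called (log2 fold change 3.28, SE 2.22, adjusted p = 0.262). The 15 macrophage genes summed to 6.29, 7.26 and 17.1 CPM in XEN, with XEN 7 highest. Within that list Ptprc and Lyz2 stayed at or under 0.147 CPM in every XEN library, while Cd68 and Cd14 had XEN means of 3.93 and 3.70 CPM. Where the Itgb2 counts came from was not tested. The stomach genes Anxa10 and Ctse, a calcium-binding annexin and an aspartic protease, did not pass the filter. They had 0.0979, 0.22 and 80.7 CPM and 0.0245, 0.165 and 84 CPM in XEN and 0.0387, 0 and 0 CPM and 0.0774, 0.0753 and 0.471 CPM in MEF. The plot of genes that differ among the XEN libraries shows the XEN libraries of the same numbers in ESC medium beside them. Stomach lining genes called higher numbered 1 without MEF 3 or by DESeq2 and 5 without XEN 1. Sex-linked genes called lower numbered 3 without XEN 2. The threshold was missed by Xist and Gkn1 without any 1 MEF library (adjusted p = 0.0683 to 0.122) and Gkn2 without MEF 3 (adjusted p = 0.053). Xist missed the threshold in the fit to all 17 libraries (adjusted p = 0.0683).

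**Figure D5:**
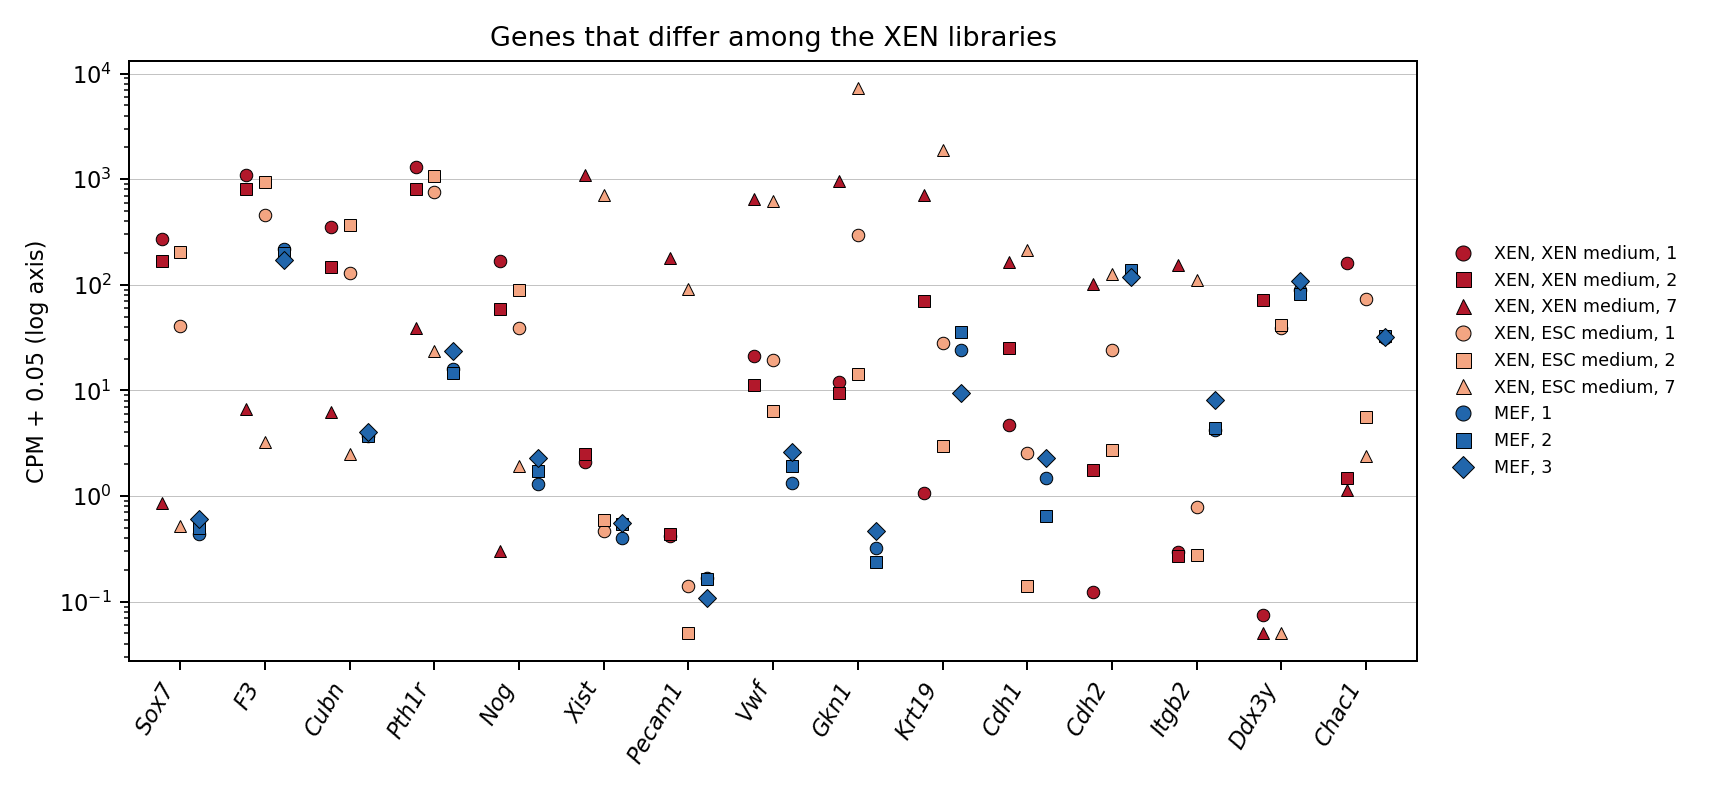
CPM + 0.05 on a log axis for 15 genes that differ among the XEN libraries, 1 symbol per library. Dark red symbols are XEN cells in XEN medium, light orange symbols XEN libraries of the same numbers in ESC medium and blue symbols MEF, and triangles mark the libraries numbered 7. These were low for Sox7, F3, Cubn, Pth1r and Nog and high for Xist, Pecam1, Vwf, Gkn1, Krt19, Cdh1 and Itgb2 in either medium.

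Between growth in ESC medium and growth in XEN medium, edgeR called no gene in the XEN libraries. Of 13241 genes tested in the 3 libraries of either medium, 0 were called by edgeR (0%), 746 had an unadjusted p under 0.05 (5.63%), and DESeq2 called 63, of which 20 were higher and 43 lower in XEN medium. With the library number as a block edgeR also called 0, with 1144 genes at an unadjusted p under 0.05. No difference by medium was therefore detectable with edgeR at this replication. Sox7 in ESC medium had 40.7, 207 and 0.47 CPM and Xist 0.413, 0.537 and 716 CPM in XEN 1, 2 and 7, again with XEN 7 apart. Whether equal numbers mark the same line in both media was not tested. Over 12934 genes, the deviations of XEN 1 in XEN medium from its group mean correlated at 0.447 with those of XEN 2 in ESC medium. With XEN 1 in ESC medium the correlation was 0.237, and between the libraries numbered 7 it was 0.641. Deviations from a mean of 3 libraries are tied to each other, and XEN 7 lay apart in both media. These correlations therefore cannot decide whether equal numbers mark the same line. In ESC medium Gata4 had 655, 1483 and 351 CPM, and Dab2 671, 1029 and 227 CPM. Fibroblast matrix transcripts were most abundant in XEN 1 among the ESC medium libraries, as Col1a1 had 2403, 137 and 0.287 CPM, Fn1 1585, 134 and 41 CPM and Postn 489, 0.806 and 0.0261 CPM. In XEN medium XEN 1 held 0.294 CPM of Col1a1. That difference was not called (log2 fold change -11.20 for XEN medium against ESC medium, adjusted p = 0.8, and -3.98 with adjusted p = 0.8 for Fn1). Spink3 had 8.95, 9.81 and 40.7 CPM in ESC medium, below each of the XEN medium libraries but not called (log2 fold change 2.81, adjusted p = 0.8), and Lin28a had 78.1, 109.8 and 64.7 CPM, also below each (1.86, adjusted p = 0.8). Both the MEF and the medium comparison use the same 3 XEN medium libraries.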

How the data were processed

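The deposited files hold raw read counts per gene for each of 17 mouse RNA-seq libraries (Illumina TruSeq mRNA, RNA taken with Trizol, per the labels' protocols). The authors made these counts with FastQC 0.11.3, Trimmomatic 0.32, TopHat2 2.0.12 and HTSeq 0.6.1 on build mm9, per the submitters' processing notes. The order of these tools, their settings, strand handling and gene annotation were not stated. The 5 lines without a gene were left out (20.8% to 26.1% of each total, with reads not uniquely aligned at 13.7% to 18.1% of that total), as were the genes with 0 counts in all 17 libraries, 3443 of 24015.

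The 6 libraries were fitted in edgeR 4.0.16 (with limma 3.58.1, R 4.3.3): filterByExpr with a minimum count of 10 and total of 15, TMM factors, and the quasi-likelihood F test with Benjamini-Hochberg adjustment over all genes tested. Every adjusted p in the text comes from this test unless DESeq2 1.42.0 is named. Fold changes are log2 values from this fit, and each SE is that value over the root of its F. Printed CPM use TMM factors over all 17 libraries, and the correlations between libraries use log2 CPM with a prior count of 2. The steps were tested on simulated data. For genes with 0 counts in a group, bounds use a floor of 3 counts over the group. For 1 to 3 counts, ratios carry a 95% counting interval. Both cover counting error only.

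Named genes were the 10 largest changes in each direction among called, non-overlapping genes with a mean of at least 10 CPM in the higher group, leaving out 146 predicted symbols, plus members of 45 lists (700 symbols, 699 found, 4 under another symbol) and a set of lineage genes. Members and lists were chosen with earlier results of these data known. List counts and medians are descriptions and no test. Promoter windows came from RefSeq. The medium comparison was fitted without pairing, and the library number entered as a block only in an alternative fit. Between media, deviations from the group means correlated at 0.237, 0.394 and 0.641 for numbers 1, 2 and 7. XEN 1 in XEN medium correlated at 0.447 with number 2 in ESC medium.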

Additional observations from a re-analysis of the deposited data

How the results depend on the processing

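No call changed direction under any alternative run. Against 6830 called genes (3310 higher, 3520 lower), the fit to all 17 libraries gave 4761 (2424 and 2337), and leaving out 1 library gave 3985 to 8965 in all, 1610 to 4145 higher and 2375 to 4820 lower. DESeq2 gave 7710, RLE size factors 6772, no filter 7004, a filter of 1 CPM in 3 libraries 6161 and the replicate block 6465. MEF and XEN in XEN medium share only the numbers 1 and 2, whose libraries' deviations correlated at 0.0313 and 0.144, so the numbers were not taken to pair them. Fold changes from the replicate block rest on the libraries with those numbers. Over alternatives the median log2 fold change of all genes lay between -0.07 and 0.07, against 0.02, and 40.4% to 50.9% of calls were higher, against 48.5%. For the media, edgeR called 0 genes under every setting, the replicate block included, and DESeq2 called 63 (20 higher, 43 lower). Of the genes named, 195 of 241 tested were called; over 12 settings 2628 of 2861 values kept direction and call, 177 lost the call and 56 gained it. Depth limits genes under 0.116 CPM, and 3 libraries a group limit the rest.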

Other observations

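The genes below were picked out after their values were seen and belong to none of the lists. Myh7, a cardiac and slow muscle myosin heavy chain, had 23.5, 55.4 and 247 CPM in XEN and 0.155, 0.263 and 0.265 CPM in MEF (log2 fold change 8.91, SE 1.18, adjusted p = 0.00228), and its neighbour Myh6, whose sequence is close enough to make counts uncertain, had 6.49, 12.6 and 59.8 CPM and 0.0387, 0.0753 and 0 CPM (log2 fold change 9.44, SE 1.39, adjusted p = 0.0032). Mybpc3, the cardiac myosin-binding protein, had 26.6, 116 and 135 CPM and 0.426, 0.489 and 0.53 CPM (log2 fold change 7.63, SE 0.76, adjusted p = 0.00104), and Tnni1, slow troponin I, 9.08, 17.2 and 53.3 CPM and 0.116, 0.301 and 0.383 CPM (log2 fold change 6.65, SE 0.92, adjusted p = 0.00262). XEN 7 was highest for each of these. Myl3, a myosin light chain of the same tissues, had 269, 30.4 and 1.14 CPM in XEN against 0.426, 0.339 and 0.353 CPM (log2 fold change 8.10, SE 2.02, adjusted p = 0.0189). An adjusted p above 0.05 was reached by Myl3 without any 1 MEF library (adjusted p = 0.0733 to 0.0798).

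Podxl, an anti-adhesive surface sialomucin, had 825, 867 and 2860.1 CPM in XEN and 4.84, 6.1 and 3.09 CPM in MEF (log2 fold change 8.39, SE 0.78, adjusted p = 0.000828). Aqp8, a water channel, had 291, 944 and 198 CPM and 0.929, 1.35 and 1.03 CPM (log2 fold change 8.80, SE 0.83, adjusted p = 0.000884), and Pga5, a pepsinogen, 749, 115 and 199 CPM and 2.28, 3.54 and 2.42 CPM (log2 fold change 7.05, SE 0.89, adjusted p = 0.00195). Clu, the secreted chaperone clusterin, had 151, 503 and 7461 CPM and 19.7, 11.7 and 22.8 CPM (log2 fold change 7.28, SE 1.69, adjusted p = 0.0148), most of it in XEN 7, without which the log2 fold change was 4.24 (adjusted p = 0.00148). Dusp9, a phosphatase of ERK kinases, had 309.6, 1180.0 and 588 CPM and 3.1, 5.79 and 2.06 CPM (log2 fold change 7.61, SE 0.78, adjusted p = 0.00111), and Mycn, a relative of Myc, 47.2, 110.2 and 149 CPM and 0.774, 2.22 and 0.854 CPM (log2 fold change 6.36, SE 0.70, adjusted p = 0.00135). In the other direction Cav1, the coat protein of caveolae, had 560.2, 571 and 486 CPM in MEF and 0.0979, 0.0825 and 0.373 CPM in XEN (log2 fold change -11.38, SE 0.70, adjusted p = 0.000227), and Ddr2, a collagen receptor kinase, 596, 492 and 591 CPM and 0.735, 0.193 and 0.0393 CPM (log2 fold change -10.72, SE 1.06, adjusted p = 0.000992). Calls were lost for Clu without any 1 MEF library (adjusted p = 0.0629 to 0.064).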
